A study of Mus musculus with 36 samples.

Results

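Stromal progenitors made from mouse embryonic stem cells (mESC), called induced stromal progenitors (iSPs), were compared gene by gene with stromal progenitors (SPs) taken *ex-fetu* from E11.5 kidneys. The genes compared reached a normalised value of 1 in 4 or more of the 8 libraries, which left 13916 of the 22761 genes in the deposited table. The study deposited 36 libraries, 4 in each of 9 groups, and 8 of these carry the comparison: 4 of iSPs and 4 of E11.5 SPs. The iSPs came from E14 mESC, and each library pooled all embryoid bodies from one run of differentiation. In stages and in changing combinations, the cells were given Activin A, BMP4, CHIR99021 (a Wnt pathway agonist), retinoic acid, FGF9 and Y27632 (a kinase inhibitor). E11.5 SPs came from CD1 mice, and each library pooled the kidneys of all embryos carried by one female. The labels name no transgene and no mutation for either group. E14 is a single established line from another strain than CD1, so that strain, line and derivation cannot be told apart in any difference described here. Both groups were sorted as cells with high PDGFRA and low ITGA8 after cells positive for CD31, EpCAM or RET had been gated out, so the transcripts of these 5 proteins are not independent of the sort. E12.5 SPs, E11.5 nephron progenitors (NPs), E12.5 NPs and induced NPs (iNPs), the last from the same kind of embryoid body culture as the iSPs, are used below to choose sets of stromal and nephron genes, as another comparator and to show where the stromal comparison differs.

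The stroma of the developing kidney descends largely from progenitors that express the transcription factor *Foxd1* and that lie around the cap of nephron progenitors, and it gives rise to the interstitial fibroblasts, pericytes, mesangial cells and part of the vascular smooth muscle. Stromal cells make retinoic acid, which acts on the ureteric bud, and carry the atypical cadherin *Fat4*, which acts on the neighbouring nephron progenitors. Mesenchyme around the ureter stalk, marked by *Tbx18*, is a distinct stromal population of the same organ.

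The values are read counts scaled to the depth of the library (CPM) that the authors scaled with normalisation factors, called normalised CPM. The 4 iSP libraries held between 20977667 and 29427581 reads on genes and the E11.5 SP libraries between 26495949 and 43149557. A total of 3 reads, taken as the limit of detection, corresponded to at most 0.145 normalised CPM in an iSP library and 0.119 in an E11.5 SP library. Genes were tested with limma on log2(normalised CPM + 1), with Benjamini-Hochberg adjustment over all 13916 genes, and a gene is said to be higher or lower where its adjusted p-value was under 0.05. Every log2 fold change below is iSP minus E11.5 SP on this scale, with its standard error (SE), and on this scale the change of a weakly expressed gene is understated. Values without a unit are normalised CPM, values of single libraries are listed by replicate number, 1 to 4, and a signed number in parentheses after a gene is its log2 fold change. Replicate numbers were not taken as an order or a pairing. In pooled sorted cells, a fall in the share of cells that express a gene and a fall in the RNA of that gene in each cell cannot be told apart. A gene nearly silent in one group was tested only if it was high enough in the other, so such a gene could pass the test in one direction alone. Counts over the tested members of a list include such genes.

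The E11.5 SP libraries differed among themselves more than the iSP libraries did. The lowest correlation of log2 values between replicates was 0.965 for E11.5 SPs and 0.992 for iSPs. Among genes at 1 or more in all 4 libraries of a group, the highest library exceeded the lowest by more than 2-fold for 1935 of 12714 genes (15.2%) in E11.5 SPs. In iSPs it did so for 371 of 12985 (2.86%). Libraries 1 and 2 of the E11.5 SPs were high in some genes of the mesenchyme of the lower body, chosen after their values were seen. *Isl1*, a LIM-homeodomain factor of splanchnic and hindlimb mesoderm, was at 94.7, 74.1, 19.3 and 4.73 normalised CPM in these 4 libraries. *Foxf2*, a Hedgehog-responsive forkhead factor, was at 65.6, 47.3, 9.14 and 2.52. *Hoxa13*, a posterior *Hox* gene, was at 27.1, 19.5, 4.81 and 1.27, so these genes were high in libraries 1 and 2 and low in 3 and 4. *Gli1*, a target of Hedgehog signalling, was at 184, 183, 59.0 and 42.9. By contrast *Foxd1* was at 265, 367, 447 and 563 and *Tcf21*, a factor of renal stroma, at 44.1, 42.6, 80.7 and 142, so both were higher in libraries 3 and 4. *Tbx18*, a marker of the ureter mesenchyme, did not split the libraries in this way, at 92.1, 127, 102 and 93.6. Transcripts of erythroid genes summed to 82.7, 323, 267 and 1582 normalised CPM in the E11.5 SPs, and their sum was highest in library 4. That library also held the lowest values of genes with long transcripts, here those longer than 6800.4 bases. Their median deviation from the mean of the other libraries of the group was -0.42 on the log2 scale in library 4 and 0.30 in library 2. For some genes and lists, values against libraries 1 and 2 alone, or 3 and 4 alone, are also given below. This split was drawn after the values above were seen, so for those genes a contrast between the pairs was fixed by the choice. The plot of single libraries for genes that differ between the E11.5 SP libraries shows them beside *Foxd1*.

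**Figure D1:**
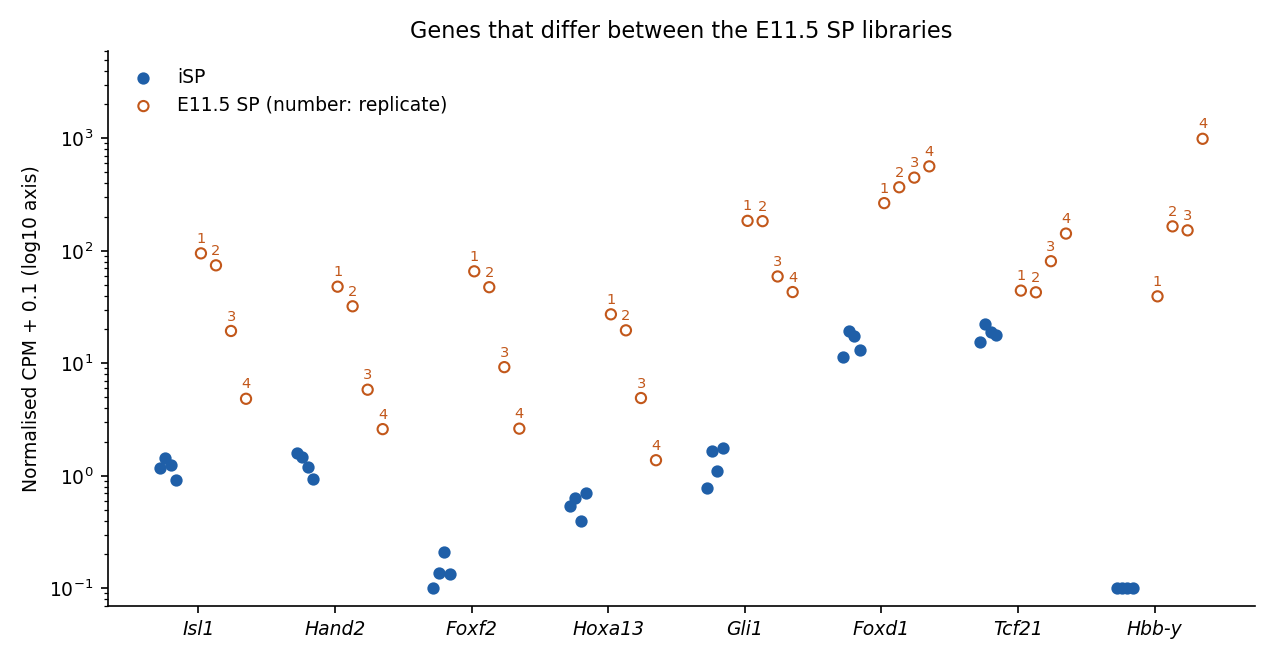
Normalised CPM (log10 axis, with 0.1 added to each value) of 8 genes in the 4 iSP and the 4 E11.5 SP libraries, each point a library and numbered by replicate for E11.5 SPs. *Isl1*, *Hand2*, *Foxf2*, *Hoxa13* and *Gli1* were highest in E11.5 SP libraries 1 and 2, *Foxd1* and *Tcf21* in 3 and 4, and *Hbb-y* in 4.

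Of the 13916 genes, 9411 (67.6%) differed between iSPs and E11.5 SPs, 4943 higher (35.5%) and 4468 lower (32.1%) in iSPs, and these shares are the background for every list below. For 8649 genes (62.2%) no iSP library overlapped any E11.5 SP library. Most of the differences were small. The median log2 fold change was 0.77 among the genes that were higher and -0.80 among those that were lower, 3261 genes (23.4%) moved by more than 1 on the log2 scale, 646 (4.64%) by more than 2 and 182 (1.31%) by more than 3. Among the genes that moved by more than 3, 132 were lower and 50 higher in iSPs. Scaling each library to its upper quartile in place of the authors' factors shifted the median of all genes from 0.04 to 0.17 and the split to 5770 higher and 3712 lower, so that differences of this size have no fixed direction.

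The direction also went with the class of gene. The 4638 genes with the lowest mean levels had a median of 0.22 and the 4639 with the highest mean levels had one of -0.14, and under upper-quartile scaling these were 0.32 and 0.01. Medians fell from 0.27 in the fifth of genes with the shortest transcripts to -0.19 in the fifth with the longest. Of 628 processed pseudogenes, which are copies of spliced transcripts, 280 were higher and 87 lower in iSPs (median 0.43). Of 182 long intergenic non-coding RNAs, 77 were higher and 35 lower, and of the 4 with the highest mean *H19*, *Malat1* (102 to 173 in iSPs against 222 to 374 in E11.5 SPs) and *6330403K07Rik* (-0.32) were lower and *1700020I14Rik* (0.49) higher. Of 12572 protein-coding genes, 4422 were higher and 4194 lower (median 0.01). Medians of the single autosomes and of chromosome X lay between -0.06 and 0.10, and that of chromosome Y, with 6 genes tested, was 0.18. In the mitochondrial genome 7 of 13 genes were lower and 0 higher (median -0.36).

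The proteins of the sort markers served to choose the cells, and their transcripts are given as a description. *Pdgfra*, the receptor used for positive selection, was at 363, 425, 434 and 417 normalised CPM in the iSP libraries and 349, 350.5, 337 and 337 in the E11.5 SP libraries. *Itga8*, the integrin of nephron progenitors used to exclude them, was at 56.7, 60.2, 59.2 and 56.1 in iSPs and 14.5, 13.0, 15.3 and 28.1 in E11.5 SPs, so every iSP library lay above every E11.5 SP library for a gene of which both sorts took the low cells. Of the genes whose products were gated out, *Ret* was at 0.193, 1.075, 0.332 and 0.304 in iSPs and 29.1, 20.9, 22.01 and 6.22 in E11.5 SPs, so its transcripts were nearly absent from iSPs. *Epcam* was at 9.81, 8.52, 8.94 and 8.11 in iSPs and 15.05, 11.3, 23.4 and 10.01 in E11.5 SPs. *Pecam1*, which encodes CD31, was at 5.56, 4.19, 3.55 and 3.75 in iSPs and 0.634, 0.827, 1.91 and 6.01 in E11.5 SPs.

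The 18 genes of the renal stroma list were all tested, and they split: 7 were higher and 8 lower in iSPs, with a median log2 fold change of -0.07 against 0.04 over all genes. With upper-quartile scaling 8 were higher and 8 lower, and the median turned to 0.08. Against E12.5 SPs 4 were higher and 9 lower (median -0.28). *Foxd1*, which marks the cortical stroma progenitor, was at 11.4, 19.2, 17.3 and 12.9 normalised CPM in the iSP libraries and 265, 367, 447 and 563 in the E11.5 SP libraries. It lies at chr13:98354242-98359305 (GRCm38) and was 27.0-fold lower in iSPs (log2 fold change -4.64 ± 0.23 SE, adjusted p = 3.4e-07), with no overlap. Its mean was 7.08 ± 1.25 (SD, n = 4) in iNPs, 62.8 ± 20.9 (SD, n = 4) in E11.5 NPs and 668 ± 92.4 (SD, n = 4) in E12.5 SPs. In these means E11.5 NPs, too, stood above iSPs.

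Of the other stromal genes, *Fat4* and *Aldh1a2* were lower as well. *Fat4*, the cadherin by which stroma acts on nephron progenitors, was at 121, 196, 177 and 167 in iSPs and 755, 1140.2, 858 and 520.4 in E11.5 SPs (log2 fold change -2.27 ± 0.23 SE, adjusted p = 2.1e-05). *Dchs1*, which encodes its binding partner, was at 660.2, 687, 743 and 689.7 in iSPs and 688, 859, 748 and 637 in E11.5 SPs (log2 fold change -0.07 ± 0.10 SE, adjusted p = 0.57), and the groups overlapped. *Aldh1a2*, the main retinoic acid synthesising enzyme of stroma, was at 182, 176, 179 and 165 in iSPs and 664, 605, 784 and 983 in E11.5 SPs (log2 fold change -2.08 ± 0.14 SE, adjusted p = 1.7e-06). The groups did not overlap for *Aldh1a2*, and E12.5 SPs stood higher still at 1202 ± 183 (SD, n = 4).

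*Tcf21* was at 15.5, 22.2, 18.9 and 17.7 in iSPs and 44.1, 42.6, 80.7 and 142 in E11.5 SPs (log2 fold change -1.83 ± 0.34 SE, adjusted p = 0.0010). *Ntn1*, a secreted guidance cue of the stroma, was at 47.7, 50.2, 55.8 and 41.6 in iSPs and 76.1, 93.6, 152 and 199 in E11.5 SPs (log2 fold change -1.30 ± 0.27 SE, adjusted p = 0.0018). Both changes were larger against E11.5 SP libraries 3 and 4 (log2 fold changes -2.48 and -1.82) than against 1 and 2 (-1.19 and -0.79). Genes for secreted matrix proteins on the list were lower too, with log2 fold changes of -1.13 for *Ecm1*, -1.73 for *Smoc2* and -0.90 for *Dcn*.

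Other stromal regulators were at or above the level of the kidney. *Meis1*, a homeodomain factor found across the stroma, was at 267, 296, 291 and 272 in iSPs and 289, 343, 282 and 265 in E11.5 SPs (log2 fold change -0.06 ± 0.09 SE, adjusted p = 0.57), and the groups overlapped. The homeodomain factor *Meis2* (0.53), the nuclear receptors *Rarb* (0.67) and *Nr2f2* (0.59), the receptor *Pdgfrb* (0.82) and the Wnt antagonist *Sfrp1* (1.13) were higher in iSPs by log2 fold changes with SEs of at most 0.10. *Sfrp1* was at 512, 481, 507 and 481 in iSPs and 223, 208, 241 and 234 in E11.5 SPs, so every iSP library stood above every E11.5 SP library. The secreted factor *Fibin* was at 91.6, 83.2, 90.9 and 89.1 in iSPs and 8.31, 10.02, 14.98 and 28.1 in E11.5 SPs (log2 fold change 2.60 ± 0.30 SE, adjusted p = 4.6e-05). *Snai2*, a factor of mesenchymal cells, overlapped at 73.7, 76.6, 70.3 and 77.0 in iSPs and 44.8, 46.7, 50.3 and 88.3 in E11.5 SPs (log2 fold change 0.42 ± 0.19 SE, adjusted p = 0.076). Against E12.5 SPs *Rarb* (log2 fold change -0.06) and *Nr2f2* (-0.20) did not pass the test. The plot of renal stroma genes by library shows both kinds side by side.

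**Figure D2:**
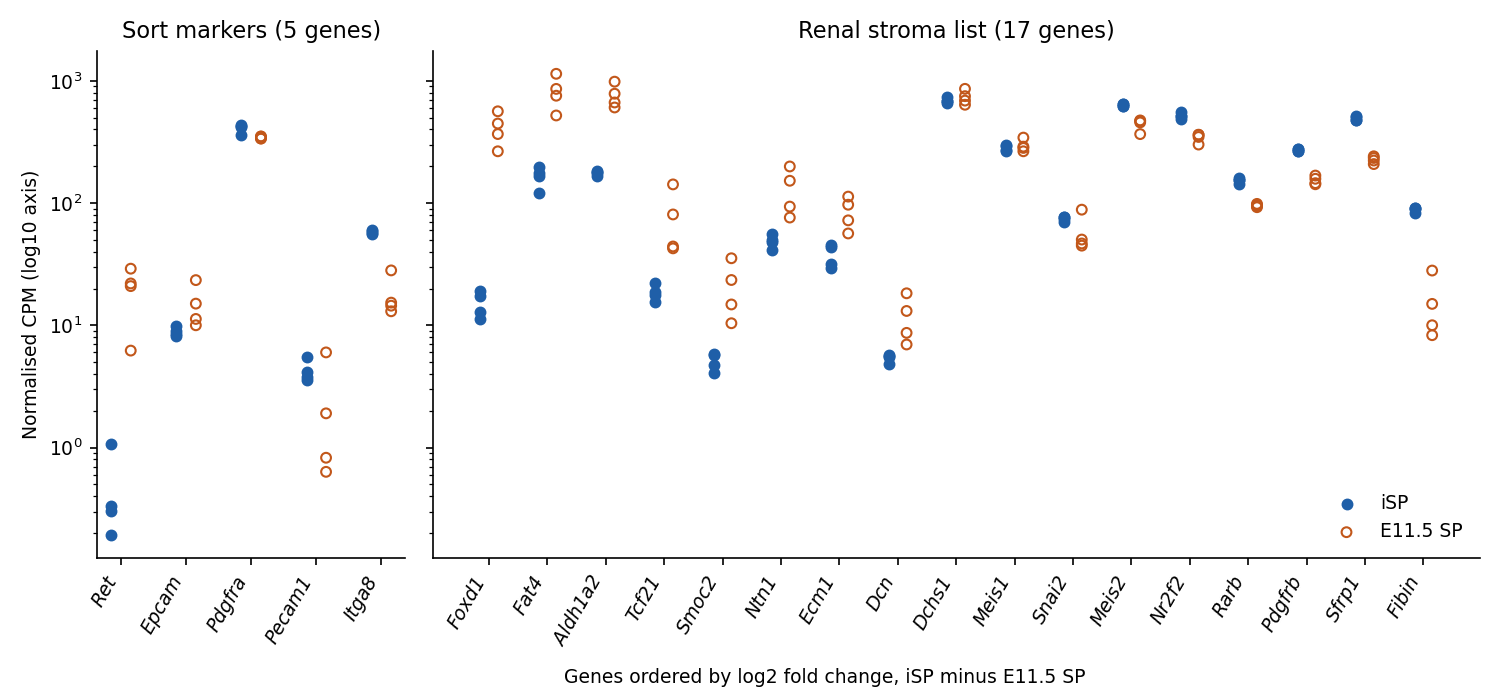
Normalised CPM (log10 axis) of the 5 sort marker genes and 17 of the 18 renal stroma genes in each iSP library (filled) and E11.5 SP library (open), genes ordered by log2 fold change. At the left end the iSP points of *Foxd1* lie below all E11.5 SP points, at the right end those of *Fibin* lie above them, and *Meis1* and *Dchs1* overlap.

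Against iNPs, which came from the same kind of culture and were sorted by the opposite gate, 13 of 18 renal stroma genes were higher and 3 lower in iSPs. Of all 14052 genes tested there, 30.7% differed, 14.2% higher and 16.5% lower. Summed over the list, normalised CPM ran from 5058 to 5384 in iSPs, from 4862 to 5928 in E11.5 SPs, from 1704 to 2465 in iNPs and from 2359 to 2475 in E11.5 NPs. E12.5 SPs stood above every iSP library, at 5525 to 8892. In the summed level of the list iSPs thus lay with E11.5 SPs, below E12.5 SPs and above both kinds of NP. In *Foxd1*, the gene that defines the population, iSPs did not lie with E11.5 SPs. Of the list, 0 genes lay below 1 normalised CPM in all iSP libraries.

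A wider set of stromal genes was taken from the E12.5 libraries, which the comparison does not use: 1471 genes were higher in E12.5 SPs than in E12.5 NPs by more than 1 on the log2 scale, where 17.8% of 13772 genes were higher by any amount. Of these, 1403 were tested between iSPs and E11.5 SPs, and 727 (51.8%) were lower and 331 (23.6%) higher in iSPs, with a median of -0.47. Between iSPs and iNPs, 1303 of the set were tested, and 637 (48.9%) were higher and 202 (15.5%) lower in iSPs, with a median of 0.43. The median gene of the set thus stood below E11.5 SPs and above iNPs in iSPs. Both readouts share the iSP libraries. The counterpart, 858 genes higher in E12.5 NPs than in E12.5 SPs, gave 280 higher and 204 lower of 712 tested (median 0.16).

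Leading members of the stromal set went both ways. *Ebf3*, a stromal transcription factor, was at 49.3, 52.97, 53.2 and 50.6 in iSPs and 152, 205, 158 and 114 in E11.5 SPs (log2 fold change -1.56 ± 0.15 SE, adjusted p = 1.5e-05). *Ddr2*, a collagen receptor, was at 273, 272, 282 and 298 in iSPs and 154, 155, 123 and 112 in E11.5 SPs (log2 fold change 1.06 ± 0.11 SE, adjusted p = 3.0e-05). *Nfia* and *Hic1*, both transcription factors, were also higher in iSPs, with log2 fold changes of 1.43 and 0.95, while *Gata6* was lower (-1.31). The groups did not overlap for *Ebf3* or *Ddr2*. Against E12.5 SPs *Hic1* was lower in iSPs (-1.37) and *Nfia* did not pass the test (-0.04).

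Markers of the ureter mesenchyme were mostly lower in iSPs than in E11.5 SPs. Of 7 tested genes of this list 5 were lower and 1 higher, with a median of -1.47. Against E12.5 SPs 2 were lower and 1 higher (median -0.21), and the list summed to 454 to 537 in iSPs and 435 to 602 in E12.5 SPs. *Tbx18* was at 14.4, 17.6, 15.3 and 18.3 normalised CPM in the iSP libraries and 92.1, 127, 102 and 93.6 in the E11.5 SP libraries, 6.31-fold lower in iSPs (log2 fold change -2.58 ± 0.12 SE, adjusted p = 2.7e-07), and did not overlap. *Sox9*, a transcription factor of several mesenchymes and epithelia, was at 78.4, 91.5, 87.2 and 81.1 in iSPs and 244, 341, 289.7 and 225 in E11.5 SPs (log2 fold change -1.67 ± 0.13 SE, adjusted p = 3.7e-06). *Tshz3*, a regulator of ureteric smooth muscle, was at 33.5, 40.0, 40.2 and 39.9 in iSPs and 112, 126, 113 and 84.2 in E11.5 SPs (log2 fold change -1.47 ± 0.13 SE, adjusted p = 7.7e-06). None of these 3 genes overlapped. *Isl1* lay at 1.06, 1.33, 1.15 and 0.811 in iSPs, below each E11.5 SP library, but its log2 fold change ran from -5.35 against libraries 1 and 2 to -2.38 against 3 and 4. *Tbx2*, a factor of the same mesenchyme, overlapped (log2 fold change 0.11 ± 0.15 SE, adjusted p = 0.52).

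Mural cell genes split as well. *Mcam*, an adhesion molecule of pericytes, was at 10.3, 10.2, 10.5 and 7.47 in iSPs and 165, 168, 112 and 124 in E11.5 SPs (log2 fold change -3.74 ± 0.16 SE, adjusted p = 1.5e-07). *Cspg4*, which encodes NG2, was at 10.1, 12.6, 10.9 and 10.9 in iSPs and 23.9, 33.4, 43.5 and 47.1 in E11.5 SPs (log2 fold change -1.60 ± 0.19 SE, adjusted p = 6.3e-05). *Rgs5*, a pericyte regulator of G protein signals, was at 47.6, 67.4, 62.9 and 52.2 in iSPs and 145, 155, 224 and 153 in E11.5 SPs (log2 fold change -1.53 ± 0.16 SE, adjusted p = 2.3e-05). These 3 genes did not overlap, and against E12.5 SPs *Rgs5* was higher in iSPs (0.38). *Notch3*, a receptor of mural cells, was at 357, 405, 388 and 355 in iSPs and 273, 358, 297 and 201 in E11.5 SPs (log2 fold change 0.44 ± 0.16 SE, adjusted p = 0.030). Of 6 genes tested, 2 were higher and 3 lower, and *Ren1*, which encodes renin, was below the limits for a test in both groups.

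Several defining genes of nephron progenitors were at levels below those of E11.5 NPs in both groups. *Six2*, which holds these cells in the progenitor state, stood at means of 13.4 normalised CPM in iSPs, 20.5 in E11.5 SPs and 590.2 in E11.5 NPs. *Pax2* stood at 14.1, 9.31 and 470.5 in the same groups, *Eya1* at 33.8, 28.5 and 244, and *Cited1* and *Osr1* were also highest in NPs. Against E12.5 SPs *Six2* was higher in iSPs (1.95). Over the list, 5 of 13 were higher and 4 lower in iSPs, the sort gene *Itga8* among the former. Against E12.5 SPs 8 were higher and 2 lower (median 1.68, where it was 0.32 against E11.5 SPs). Against iNPs 2 were higher and 9 lower in iSPs. *Meox1*, a homeobox gene of somites and of nephron progenitors, was at 174, 175, 180.4 and 157 normalised CPM in the iSP libraries and 19.2, 14.95, 16.1 and 15.1 in the E11.5 SP libraries, 10.5-fold higher in iSPs (log2 fold change 3.32 ± 0.10 SE, adjusted p = 1.9e-08), and its mean in E11.5 NPs was 65.3. *Gdnf*, the ligand of RET that draws out the ureteric bud, was at 5.41, 8.13, 7.83 and 5.44 in iSPs and 37.2, 46.3, 35.5 and 44.1 in E11.5 SPs (log2 fold change -2.45 ± 0.15 SE, adjusted p = 1.2e-06). *Sall1* was at 16.9, 16.2, 17.7 and 11.2 in iSPs and 44.5, 69.3, 54.2 and 73.2 in E11.5 SPs (log2 fold change -1.89 ± 0.18 SE, adjusted p = 1.6e-05). *Wt1* was slightly higher (log2 fold change 0.25 ± 0.10 SE, adjusted p = 0.044), *Crym* was higher (0.77), and *Tmem100* overlapped (log2 fold change -0.07 ± 0.17 SE, adjusted p = 0.73). Of the genes of early nephrons, *Pax8* (6.29 to 14.4 in iSPs against 0.300 to 1.43 in E11.5 SPs) and *Lhx1* (3.21 to 5.32 in iSPs against 0.608 to 1.63 in E11.5 SPs) were higher, and *Jag1* (17.98 to 25.2 in iSPs against 48.2 to 65.9 in E11.5 SPs) and *Wnt4* (12.503 to 19.4 in iSPs against 18.9 to 29.9 in E11.5 SPs) lower in iSPs.

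Markers of other cells that a sort can carry over differed in sign. Of 11 ureteric bud genes 7 were lower and 1 higher in iSPs; their summed level was 90.9 to 103 normalised CPM in iSPs and 153 to 344 in E11.5 SPs, and 92.4 to 125 in E12.5 SPs. The keratins *Krt8* (1.01 to 2.17 in iSPs against 10.4 to 29.9 in E11.5 SPs) and *Krt18* (1.42 to 2.27 in iSPs against 14.95 to 40.4 in E11.5 SPs) and the bud ligand *Wnt9b* (0 to 0.111 in iSPs against 2.29 to 7.15 in E11.5 SPs) were lower in iSPs. *Wnt11*, a ligand of the bud tip, was at 39.1, 33.96, 32.1 and 39.4 in iSPs and 161, 143, 101.2 and 74.5 in E11.5 SPs (log2 fold change -1.65 ± 0.22 SE, adjusted p = 1.1e-04). *Gata3* overlapped (log2 fold change -0.72 ± 0.31 SE, adjusted p = 0.067). Against E12.5 SPs 5 genes of this list were higher and 3 lower. Of 11 endothelial genes 7 were higher and 1 lower, with sums of 63.2 to 94.0 in iSPs and 35.4 to 77.4 in E11.5 SPs. With E11.5 SP libraries 3 and 4 alone as comparator 4 were higher and 2 lower, and by edgeR 4 and 1. *Cldn5*, a tight junction protein of endothelium, was at 10.7, 8.52, 5.39 and 5.78 in iSPs and 0.234, 0.219, 0.953 and 2.26 in E11.5 SPs. *Cdh5*, the cadherin of endothelial cells, was at 12.6, 11.6, 8.94 and 8.35 in iSPs and 1.17, 0.973, 4.65 and 8.92 in E11.5 SPs, so that for *Cdh5* E11.5 SP library 4 fell within the iSP range. Macrophage genes summed to 2.42 to 3.77 in iSPs and 4.97 to 9.60 in E11.5 SPs, with 5 of 13 at 0 in all iSP libraries, and *Cd68* alone was tested (1.79 to 3.18 in iSPs against 3.04 to 7.61 in E11.5 SPs).

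Globin transcripts were present in E11.5 SPs and not detected in iSPs. *Hbb-y*, the embryonic beta-globin, was at 0, 0, 0 and 0 in iSPs and 39.2, 165, 152 and 989.6 in E11.5 SPs, at least 2320.2-fold lower in iSPs when the mean of the E11.5 SPs is set against 3 reads in the shallowest iSP library, or at least 818-fold without E11.5 SP library 4. *Hba-x*, *Hbb-bh1* and *Hba-a1* were likewise at 0 in all iSP libraries. These were the 4 of 9 erythroid genes that were tested, and since they passed the filter through the E11.5 SPs alone, their direction was fixed. The erythroid sum was 287 to 2899 in E12.5 SPs. Among neural and crest genes, *Stmn2*, a microtubule regulator of neurons, was at 78.6, 52.2, 53.4 and 80.8 in iSPs and 1.67, 3.89, 3.65 and 8.84 in E11.5 SPs (log2 fold change 3.74 ± 0.34 SE, adjusted p = 1.1e-05). *Tubb3* was at 1.55, 1.76, 1.182 and 1.05 in iSPs and 8.08, 8.22, 14.7 and 11.7 in E11.5 SPs (log2 fold change -2.26 ± 0.19 SE, adjusted p = 7.1e-06). The neuregulin receptor *Erbb3* was at 1.40, 0.931, 1.51 and 1.183 in iSPs and 23.9, 18.4, 22.3 and 12.4 in E11.5 SPs (log2 fold change -3.13 ± 0.20 SE, adjusted p = 1.1e-06). The neural *Sox1* and the crest *Sox10* lay too low for a test. How far cells of these types contribute to the differences in the lists that follow was not tested.

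Sclerotome and dermomyotome, parts of the somites, are tissues of paraxial mesoderm. Of 7 sclerotome and dermomyotome genes 6 were higher and 0 lower, with a median of 2.87, but 5 of the 7 had E11.5 SP means below 1 and 4 more were too low for the test. *Pax1*, a factor of the sclerotome, was at 29.4, 24.3, 24.1 and 31.2 in iSPs and 3.003, 0.486, 0.397 and 0.468 in E11.5 SPs (log2 fold change 3.91 ± 0.31 SE, adjusted p = 4.9e-06). *Dmrt2*, a factor of the dermomyotome, was at 9.95, 11.9, 12.9 and 11.1 in iSPs and 2.20, 0.681, 0.159 and 0.312 in E11.5 SPs (log2 fold change 2.87 ± 0.28 SE, adjusted p = 1.6e-05). *Alx4* was at 131, 143, 141 and 153 in iSPs and 10.5, 9.80, 1.03 and 0.312 in E11.5 SPs (log2 fold change 5.07 ± 0.65 SE, adjusted p = 9.5e-05), and its log2 fold change was 3.68 against E11.5 SP libraries 1 and 2 and 6.45 against 3 and 4. None of these overlapped. *Uncx*, a somite gene that NPs also express, was higher at 13.6, 10.2, 12.2 and 7.81 in iSPs and 2.30, 0.948, 3.89 and 9.47 in E11.5 SPs (log2 fold change 1.46 ± 0.44 SE, adjusted p = 0.014), although E11.5 SP library 4 fell within the iSP range. *Foxc1*, a forkhead factor of both somite and stroma, went the other way at 4.25, 9.31, 6.46 and 4.36 in iSPs and 241, 315, 279 and 213 in E11.5 SPs (log2 fold change -5.25 ± 0.22 SE, adjusted p = 1.3e-07), 43.0-fold lower in iSPs, and *Foxc2* did so less (log2 fold change -1.27 ± 0.20 SE, adjusted p = 3.9e-04).

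In the list of lateral plate and cardiac mesoderm, 6 of 11 genes were lower and 3 higher. *Hand2*, a factor of limb and heart mesoderm, was at 1.498, 1.36, 1.11 and 0.845 in iSPs and 47.9, 31.997, 5.72 and 2.50 in E11.5 SPs (log2 fold change -2.67 ± 0.73 SE, adjusted p = 0.0092), and *Foxf2* at 0, 0.0358, 0.111 and 0.0338 in iSPs (log2 fold change -4.14 ± 0.80 SE, adjusted p = 0.0012). Against E11.5 SP libraries 1 and 2 *Hand2* fell by 4.20 and *Foxf2* by 5.76, and against 3 and 4 by 1.15 and 2.52. *Prrx1*, a homeobox gene of limb and facial mesenchyme, was at 648, 545, 576 and 715 in iSPs and 277, 251, 173 and 113 in E11.5 SPs (log2 fold change 1.68 ± 0.25 SE, adjusted p = 2.5e-04), so it was higher in iSPs and, among E11.5 SPs, in libraries 1 and 2. *Wnt2* (0.0676 to 0.222 in iSPs against 1.98 to 5.44 in E11.5 SPs) and *Gata4* (1.08 to 2.76 in iSPs against 2.99 to 13.7 in E11.5 SPs) were lower, although against E12.5 SPs *Gata4* was higher (1.01). *Tbx4*, a hindlimb factor chosen after its values were seen, was at 3.38, 2.26, 2.14 and 3.51 in iSPs and 20.7, 25.9, 0.278 and 0 in E11.5 SPs, above the iSPs in E11.5 SP libraries 1 and 2 and below them in 3 and 4 (log2 fold change -0.47 ± 1.03 SE, adjusted p = 0.70). Against E12.5 SPs the list gave 6 higher and 2 lower, and with E11.5 SP libraries 3 and 4 alone as comparator 5 and 6.

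Of 6 genes of head mesoderm 4 were lower and 2 higher, and of 7 genes of somites and presomitic mesoderm 4 were higher and 2 lower. In the latter list edgeR called 3 higher and 2 lower, and with E11.5 SP libraries 3 and 4 alone 2 were higher and 2 lower. *Lhx2*, a homeobox gene of the head mesoderm list, was higher (81.5 to 96.5 in iSPs against 0.238 to 1.03 in E11.5 SPs). Of 3 tested genes of adrenal and gonad 2 were higher and 1 lower in iSPs. The homeobox genes *Emx2* (121 to 139.9 in iSPs against 2.18 to 9.54 in E11.5 SPs) and *Lhx9* (4.30 to 4.93 in iSPs against 0.234 to 1.80 in E11.5 SPs) were higher, and *Gata4*, given above, was lower. The cartilage genes *Acan* and *Mkx* were lower (-1.66) and higher (1.08). *Col2a1* overlapped (log2 fold change -0.45 ± 0.27 SE, adjusted p = 0.17). Of 5 pluripotency genes 4 were higher and 1 lower in iSPs, with E11.5 SP means below 1 for 3, and 6 more were too low for the test. *Dppa5a* was at 1.98, 1.40, 1.33 and 1.49 in iSPs and 0, 0, 0.0397 and 0 in E11.5 SPs. *Zfp42* was at 1.55, 1.22, 1.29 and 1.15 in iSPs and 0.234, 0.0973, 0.318 and 0.208 in E11.5 SPs, so both were low in either group. *Klf4*, which embryonic fibroblasts also express, was lower (8.75 to 20.5 in iSPs against 78.5 to 119 in E11.5 SPs).

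Among 37 tested *Hox* genes 16 were lower and 3 higher in iSPs (median -0.27). With E11.5 SP libraries 1 and 2 alone as comparator 22 were lower and 4 higher. With libraries 3 and 4 alone 13 were lower and 7 higher, and against E12.5 SPs 15 and 11. Several genes of the kidney's level of the body axis overlapped: *Hoxa10* was at 175, 149, 156 and 167 in iSPs and 143, 161, 168 and 161 in E11.5 SPs (log2 fold change 0.03 ± 0.08 SE, adjusted p = 0.76). *Hoxc10* was at 204, 208, 202 and 202 in iSPs and 175, 184, 201 and 219.7 in E11.5 SPs (log2 fold change 0.07 ± 0.08 SE, adjusted p = 0.48). *Hoxa11* and *Hoxc11*, chosen after their values were seen, overlapped as well (0.03 and 0.34), whereas *Hoxd11*, the third of the kidney's paralogous *Hox11* genes, was at 52.6, 63.8, 51.7 and 47.7 in iSPs and 132, 150.2, 139 and 127 in E11.5 SPs (log2 fold change -1.33 ± 0.10 SE, adjusted p = 3.5e-06). *Hoxd11* was thus the member of its group that was lower in all iSP libraries. *Hoxd13*, a gene of the tail end and the distal limb, was at 25.4, 19.6, 21.9 and 23.5 in iSPs and 176, 124, 42.1 and 26.8 in E11.5 SPs (log2 fold change -1.61 ± 0.51 SE, adjusted p = 0.018). It fell by 2.66 against E11.5 SP libraries 1 and 2 and by 0.56 against 3 and 4, and against E12.5 SPs it was higher in iSPs (1.99). *Hoxd1* was lower (2.10 to 2.802 in iSPs against 6.22 to 17.7 in E11.5 SPs), although against E12.5 SPs it was higher (0.36), and *Hoxb13* was higher (1.77 to 2.69 in iSPs against 0.0260 to 0.133 in E11.5 SPs).

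Genes of retinoic acid handling went both ways. Of 14 genes tested 8 were higher and 4 lower in iSPs. The synthesising enzymes *Aldh1a2* and *Aldh1a3* (0.574 to 1.25 in iSPs against 2.81 to 10.1 in E11.5 SPs) were lower. The degrading enzyme *Cyp26b1* was at 80.4, 80.1, 77.6 and 74.5 in iSPs and 14.6, 15.8, 5.84 and 4.34 in E11.5 SPs, 7.72-fold higher in iSPs (log2 fold change 3.001 ± 0.34 SE, adjusted p = 4.2e-05). *Crabp1*, a binding protein, was at 925, 692, 761 and 803 in iSPs and 197, 189.9, 242 and 297 in E11.5 SPs (log2 fold change 1.79 ± 0.15 SE, adjusted p = 6.6e-06). The groups did not overlap for any of these 4 genes.

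Most receptors and ligands of the Fgf pathway were lower. Of 13 tested, 11 were lower and 2 higher, with a median of -1.33. *Fgf18*, a ligand, was at 0.338, 0.251, 0.148 and 0.405 in iSPs and 14.2, 15.7, 15.3 and 16.2 in E11.5 SPs (log2 fold change -3.67 ± 0.11 SE, adjusted p = 1.9e-08). *Fgfr3* was at 9.18, 13.6, 12.3 and 11.6 in iSPs and 98.9, 114.8, 54.8 and 42.5 in E11.5 SPs (log2 fold change -2.53 ± 0.29 SE, adjusted p = 4.6e-05), and the broadly expressed *Fgfr1* (-0.48) and *Fgfr2* (-1.33) were lower by less. *Fgf11*, an intracellular member of the family, was at 41.1, 48.6, 45.0 and 42.2 in iSPs and 4.47, 5.74, 6.79 and 5.33 in E11.5 SPs (log2 fold change 2.79 ± 0.12 SE, adjusted p = 1.8e-07). None of these genes overlapped. Of 11 feedback genes, which Fgf and MAPK signalling induce, 7 were lower and 1 higher: the phosphatase *Dusp4* was at 30.9, 32.1, 27.5 and 28.5 in iSPs and 142, 163, 149.7 and 155 in E11.5 SPs (log2 fold change -2.32 ± 0.08 SE, adjusted p = 4.9e-08), and *Dusp6* fell by less (-0.63). *Etv5* was at 26.4, 26.9, 27.0 and 22.7 in iSPs and 47.2, 55.4, 75.8 and 100.1 in E11.5 SPs (log2 fold change -1.34 ± 0.21 SE, adjusted p = 3.0e-04).

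Of 11 genes of the Hedgehog pathway 4 were higher and 5 lower in iSPs (median 0.13), and against E12.5 SPs 2 and 4. *Gli1* was at 0.676, 1.58, 0.997 and 1.66 in iSPs, 95.7-fold below the mean of the E11.5 SPs (log2 fold change -5.48 ± 0.46 SE, adjusted p = 6.2e-06). The target and antagonist *Hhip* was at 0.193, 0.358, 0.111 and 0.304 in iSPs and 22.3, 15.6, 9.53 and 4.03 in E11.5 SPs (log2 fold change -3.27 ± 0.40 SE, adjusted p = 6.4e-05). The co-receptors *Cdon* at 188, 209.5, 208 and 243 in iSPs and 47.3, 48.5, 43.5 and 29.3 in E11.5 SPs (log2 fold change 2.32 ± 0.16 SE, adjusted p = 1.8e-06) and *Gas1* (1.35) were higher, and the transducer *Smo* overlapped (log2 fold change 0.13 ± 0.08 SE, adjusted p = 0.16). *Gli1* fell by 6.40 against E11.5 SP libraries 1 and 2 and by 4.55 against 3 and 4, so it was lower in iSPs with either pair.

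Of the genes of the Bmp and Tgf-beta family, 15 of 26 ligands and antagonists were lower and 6 higher (median -0.96). The median was -1.504 against E11.5 SP libraries 1 and 2 and -0.33 against 3 and 4. *Fst*, which binds activins, was at 0.725, 0.895, 0.369 and 0.574 normalised CPM in the iSP libraries and 255, 212, 186 and 100.2 in the E11.5 SP libraries, 294-fold lower (log2 fold change -6.78 ± 0.26 SE, adjusted p = 8.5e-08). Its relative *Fstl3* was at 0.483, 0.537, 0.443 and 0.338 in iSPs and 20.3, 18.7, 16.96 and 14.5 in E11.5 SPs (log2 fold change -3.67 ± 0.12 SE, adjusted p = 4.1e-08). *Grem1*, which binds Bmps, was at 1.06, 1.04, 1.03 and 1.52 in iSPs and 72.9, 69.6, 33.2 and 23.9 in E11.5 SPs (log2 fold change -4.41 ± 0.33 SE, adjusted p = 3.1e-06). All 3 were nearly absent from iSPs and did not overlap. The ligand *Gdf10* was higher at 77.6, 58.2, 58.8 and 74.9 in iSPs and 2.97, 2.87, 2.03 and 1.92 in E11.5 SPs (log2 fold change 4.31 ± 0.15 SE, adjusted p = 4.9e-08), *Bmp1*, a procollagen protease, slightly lower (-0.44). *Tgfb2* overlapped (log2 fold change -0.29 ± 0.15 SE, adjusted p = 0.11). Among target genes *Id4* (-2.64), *Skil* (-2.49) and *Smad7* (-1.20) were lower and *Id3* higher (0.72). *Id2* overlapped (log2 fold change -0.19 ± 0.10 SE, adjusted p = 0.12).

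In the Wnt pathway 13 of 24 ligands and antagonists and 12 of 21 receptors and targets were lower, with 6 and 5 higher. Of the 24 ligands and antagonists, 6 had iSP means below 1 and 1 had an E11.5 SP mean below 1. Among those with values of at least 5 in 4 libraries, 5 of 13 were higher and 4 lower. Against E12.5 SPs 8 of 22 ligands and antagonists were lower and 8 higher. *Rspo4*, which strengthens Wnt signals, was at 19.8, 17.3, 15.4 and 18.4 in iSPs and 0.467, 0.389, 0.516 and 0.286 in E11.5 SPs (log2 fold change 3.73 ± 0.11 SE, adjusted p = 2.4e-08). *Wnt6* was at 0.0966, 0.107, 0.0369 and 0.0338 in iSPs and 9.58, 6.42, 9.73 and 4.34 in E11.5 SPs (log2 fold change -2.94 ± 0.21 SE, adjusted p = 2.6e-06) and the antagonist *Sfrp2* overlapped (log2 fold change -0.05 ± 0.17 SE, adjusted p = 0.80). The receptors changed in opposite ways: *Fzd2* was at 600, 500.3, 518 and 475 in iSPs and 190.2, 186, 199.6 and 209 in E11.5 SPs (log2 fold change 1.41 ± 0.09 SE, adjusted p = 1.3e-06), while *Fzd4* (-2.03), *Fzd5* (-2.04) and *Fzd1* (-0.80) were lower and *Fzd10* was higher (1.51, from 0.75 to 2.27 with either pair of E11.5 SP libraries).

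Insulin-like growth factor genes differed strongly in both directions. *Igf2*, the fetal growth factor, was at 10242, 9752, 10005 and 9474 in iSPs and 2860.1, 3254, 4048 and 4051 in E11.5 SPs (log2 fold change 1.49 ± 0.14 SE, adjusted p = 1.5e-05). *Igf1* was at 336, 302, 329 and 384 in iSPs and 22.4, 15.7, 2.11 and 1.56 in E11.5 SPs (log2 fold change 5.50 ± 0.66 SE, adjusted p = 6.0e-05). *Igf1* was higher by 4.09 against E11.5 SP libraries 1 and 2 and by 6.90 against 3 and 4. The binding proteins *Igfbp5* (1059.6, 1076, 1266 and 1020.5 in iSPs and 289, 240.3, 209.6 and 169 in E11.5 SPs), *Igfbp2* (2.01) and *Igfbp4* (0.89) were higher. *Grb10*, an imprinted inhibitor of insulin and Igf receptors, was at 141, 122, 107 and 157 in iSPs and 1641, 1623, 1773 and 1382 in E11.5 SPs (log2 fold change -3.61 ± 0.13 SE, adjusted p = 6.2e-08). Of 15 genes 6 were higher and 6 lower.

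Among the remaining ligands and receptors, the Notch genes *Heyl* (3.89 to 6.05 in iSPs against 14.1 to 41.5 in E11.5 SPs) and *Hes1* (44.4 to 50.3 in iSPs against 55.7 to 272 in E11.5 SPs) were lower and *Dll4* (3.18 to 4.25 in iSPs against 0.267 to 0.795 in E11.5 SPs) higher. *Notch2* overlapped (log2 fold change 0.07 ± 0.12 SE, adjusted p = 0.61), and 5 of 16 were higher with 8 lower. *Hes1* rested on libraries 3 and 4 of the E11.5 SPs (-2.37, against -0.54 with 1 and 2). *Pdgfa*, a ligand of the receptor used for the sort, was at 4.45, 3.12, 3.44 and 3.11 in iSPs and 29.9, 27.8, 33.5 and 31.5 in E11.5 SPs (log2 fold change -2.81 ± 0.12 SE, adjusted p = 1.6e-07). *Pdgfb*, a ligand of the pericyte receptor, was at 1.55, 1.33, 0.554 and 0.879 in iSPs and 31.0, 23.0, 14.98 and 15.2 in E11.5 SPs (log2 fold change -3.37 ± 0.25 SE, adjusted p = 2.9e-06), and neither overlapped. *Vegfa* was higher (log2 fold change 0.77 ± 0.09 SE, adjusted p = 4.4e-05), *Angpt2* (-2.40) and *Nrp1* (-2.01) lower, and 7 of 16 genes of this list were higher with 7 lower.

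Of 11 genes of Gdnf, Slit and Robo signalling 5 were lower and 1 higher. *Robo2*, the Slit receptor that confines *Gdnf* in the kidney, was at 21.2, 23.998, 20.2 and 23.7 in iSPs and 155, 143, 115.3 and 103 in E11.5 SPs (log2 fold change -2.47 ± 0.13 SE, adjusted p = 5.0e-07), *Robo1* fell less (-0.63), *Robo4* was higher (1.30). *Slit3* overlapped (log2 fold change 0.03 ± 0.24 SE, adjusted p = 0.92).

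YAP, a coactivator held back by the Hippo pathway, and its TEAD partners drive a set of target genes that was lower in iSPs. All 8 that were tested were lower in iSPs, with a median of -1.90, where 32.1% of all genes were lower. *Ctgf*, a matricellular protein, was at 2.22, 1.76, 1.88 and 0.811 normalised CPM in the iSP libraries and 86.8, 84.7, 46.2 and 58.2 in the E11.5 SP libraries (log2 fold change -4.70 ± 0.24 SE, adjusted p = 3.7e-07). *Lats2*, a kinase of the pathway, was at 19.2, 21.7, 22.1 and 21.998 in iSPs and 229.8, 222, 145 and 130.4 in E11.5 SPs (log2 fold change -2.997 ± 0.18 SE, adjusted p = 9.3e-07). *Crim1* was at 13.8, 16.1, 16.6 and 13.9 in iSPs and 250.1, 239, 119.5 and 105.1 in E11.5 SPs (log2 fold change -3.38 ± 0.27 SE, adjusted p = 5.0e-06). The groups did not overlap for these 3 genes. *Amotl2* was at 69.4, 83.1, 81.0 and 62.1 in iSPs and 531, 688, 302 and 208 in E11.5 SPs (log2 fold change -2.39 ± 0.33 SE, adjusted p = 1.4e-04). *Cyr61* was at 118, 152, 174 and 147 in iSPs and 376, 399, 312 and 369 in E11.5 SPs (log2 fold change -1.30 ± 0.13 SE, adjusted p = 1.5e-05). They did not overlap for these 2 either. With quantile normalisation or upper-quartile scaling 7 of the 8 were lower, and with either pair of E11.5 SP libraries all 8.

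Genes of the extracellular matrix were more often lower than higher in iSPs. Of 36 collagen chains 19 were lower and 9 higher in iSPs (median -0.67), and 17 of 25 proteoglycans and glycoproteins were lower with 4 higher (median -0.77). Under upper-quartile scaling, or with the trend on transcript length and GC content removed, 16 collagen chains were lower and 9 higher. *Col1a1*, which encodes a chain of type I collagen, was at 741, 722, 723 and 675 in iSPs and 1577, 2308, 3060 and 2813 in E11.5 SPs (log2 fold change -1.73 ± 0.19 SE, adjusted p = 3.1e-05). *Col1a2*, which encodes the other chain of the same trimer, was at 1905, 1849, 1984 and 1904 in iSPs and 591, 930.1, 1365 and 1424 in E11.5 SPs (log2 fold change 0.91 ± 0.25 SE, adjusted p = 0.0088). These chains thus moved in opposite directions, *Col1a1* lower and *Col1a2* higher in iSPs, both without overlap.

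*Col3a1*, the collagen of reticular fibres, was higher by little at 2211, 2168, 2269 and 2172 in iSPs and 1576, 1797, 2041 and 1735 in E11.5 SPs (log2 fold change 0.31 ± 0.10 SE, adjusted p = 0.022). The fibril-associated *Col12a1* was at 36.3, 51.0, 57.0 and 40.8 in iSPs and 280.5, 430, 298 and 232 in E11.5 SPs (log2 fold change -2.703 ± 0.20 SE, adjusted p = 2.8e-06). *Col5a2* was at 32.5, 35.7, 37.8 and 40.3 in iSPs and 179, 217, 251 and 295 in E11.5 SPs (log2 fold change -2.63 ± 0.15 SE, adjusted p = 5.8e-07), and the low *Col5a3* (-2.24) and *Col8a1* (-2.28) fell as well. None of these collagens overlapped. Among glycoproteins, *Postn* was at 6.14, 6.81, 8.38 and 7.10 in iSPs and 58.8, 82.9, 91.0 and 98.8 in E11.5 SPs (log2 fold change -3.35 ± 0.16 SE, adjusted p = 2.9e-07). *Fbln5*, a protein of elastic fibres, was at 1.98, 2.76, 3.14 and 1.82 in iSPs and 27.3, 36.3, 43.1 and 44.5 in E11.5 SPs (log2 fold change -3.50 ± 0.18 SE, adjusted p = 4.3e-07). *Tnc* (-3.34), *Thbs1* (-2.97), *Fn1*, which encodes fibronectin (-1.40), and *Fbn2* (-1.06) were lower too.

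Most laminins and integrins were lower too. Of 9 laminin chains 6 were lower and 1 higher: *Lama2* was at 11.4998, 12.3, 10.6 and 13.8 in iSPs and 79.8, 125, 111 and 90.6 in E11.5 SPs (log2 fold change -2.96 ± 0.15 SE, adjusted p = 3.2e-07). *Lama4*, the alpha chain of vessels, was at 81.3, 103, 101.5 and 84.8 in iSPs and 13.7, 15.6, 21.2 and 41.2 in E11.5 SPs (log2 fold change 2.09 ± 0.29 SE, adjusted p = 1.5e-04). Against E12.5 SPs *Lama4* was lower in iSPs (-0.51). *Lamc3* was lower (-2.84) and *Lamb1* (-0.44) and *Lamc1* (-0.38) fell little. The type IV collagen chains of basement membranes, *Col4a1* (-0.12), *Col4a2* (-0.13), *Col4a5* (-0.28) and *Col4a6* (0.21), chosen after their values were seen, did not pass the test against E11.5 SPs. Against E12.5 SPs they were lower in iSPs (-0.57, -0.66, -1.17 and -0.84). Of 16 integrins 11 were lower and 3 higher, with *Itgb8*, an activator of latent Tgf-beta, at 1.79, 3.22, 2.88 and 3.24 in iSPs and 38.7, 46.1, 27.7 and 27.3 in E11.5 SPs (log2 fold change -3.23 ± 0.20 SE, adjusted p = 1.2e-06). *Itgav* was at 121, 126, 123 and 124 in iSPs and 402, 384, 437 and 548 in E11.5 SPs (log2 fold change -1.82 ± 0.11 SE, adjusted p = 9.0e-07). *Itgb1* was at 336, 332, 333 and 342 in iSPs and 749, 641, 766 and 889 in E11.5 SPs (log2 fold change -1.17 ± 0.10 SE, adjusted p = 7.5e-06).

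Of 42 matrix enzymes 21 were lower and 9 higher (14 higher against E11.5 SP libraries 1 and 2): *Adamts18* was lower (0.507 to 0.967 in iSPs against 23.5 to 39.8 in E11.5 SPs; log2 fold change -4.22 ± 0.17 SE, adjusted p = 1.1e-07). *Adamts8* (-2.56) and *Adamts20* (-2.48) were lower. *Mmp9* was higher (9.12 to 12.2 in iSPs against 0.598 to 2.37 in E11.5 SPs) and *Mmp2* overlapped (log2 fold change -0.33 ± 0.17 SE, adjusted p = 0.11). Of 14 genes of cadherins and mesenchymal identity 5 were higher and 7 lower, and *Vim*, the intermediate filament of mesenchyme, was at 517, 468, 459 and 456 in iSPs and 1004, 1228, 1432 and 1638 in E11.5 SPs (log2 fold change -1.46 ± 0.14 SE, adjusted p = 1.6e-05). *Zeb2* was at 30.3, 53.4, 47.0 and 35.7 in iSPs and 211, 235, 208 and 221 in E11.5 SPs (log2 fold change -2.40 ± 0.16 SE, adjusted p = 1.6e-06), both lower, while *Cdh4* was higher (2.08) and *Cdh6* lower (-2.005). In smooth muscle genes 10 of 11 were lower and 0 higher, with iSP means below 1 for 3: *Tagln* was at 0.580, 0.358, 0.702 and 1.05 in iSPs and 141, 93.5, 57.8 and 54.7 in E11.5 SPs (log2 fold change -5.62 ± 0.28 SE, adjusted p = 3.5e-07). *Cnn1* (-2.38), *Tpm1* (-2.36) and *Mylk* (-1.86) fell, and *Cald1* overlapped (log2 fold change 0.06 ± 0.07 SE, adjusted p = 0.45).

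**Figure D3:**
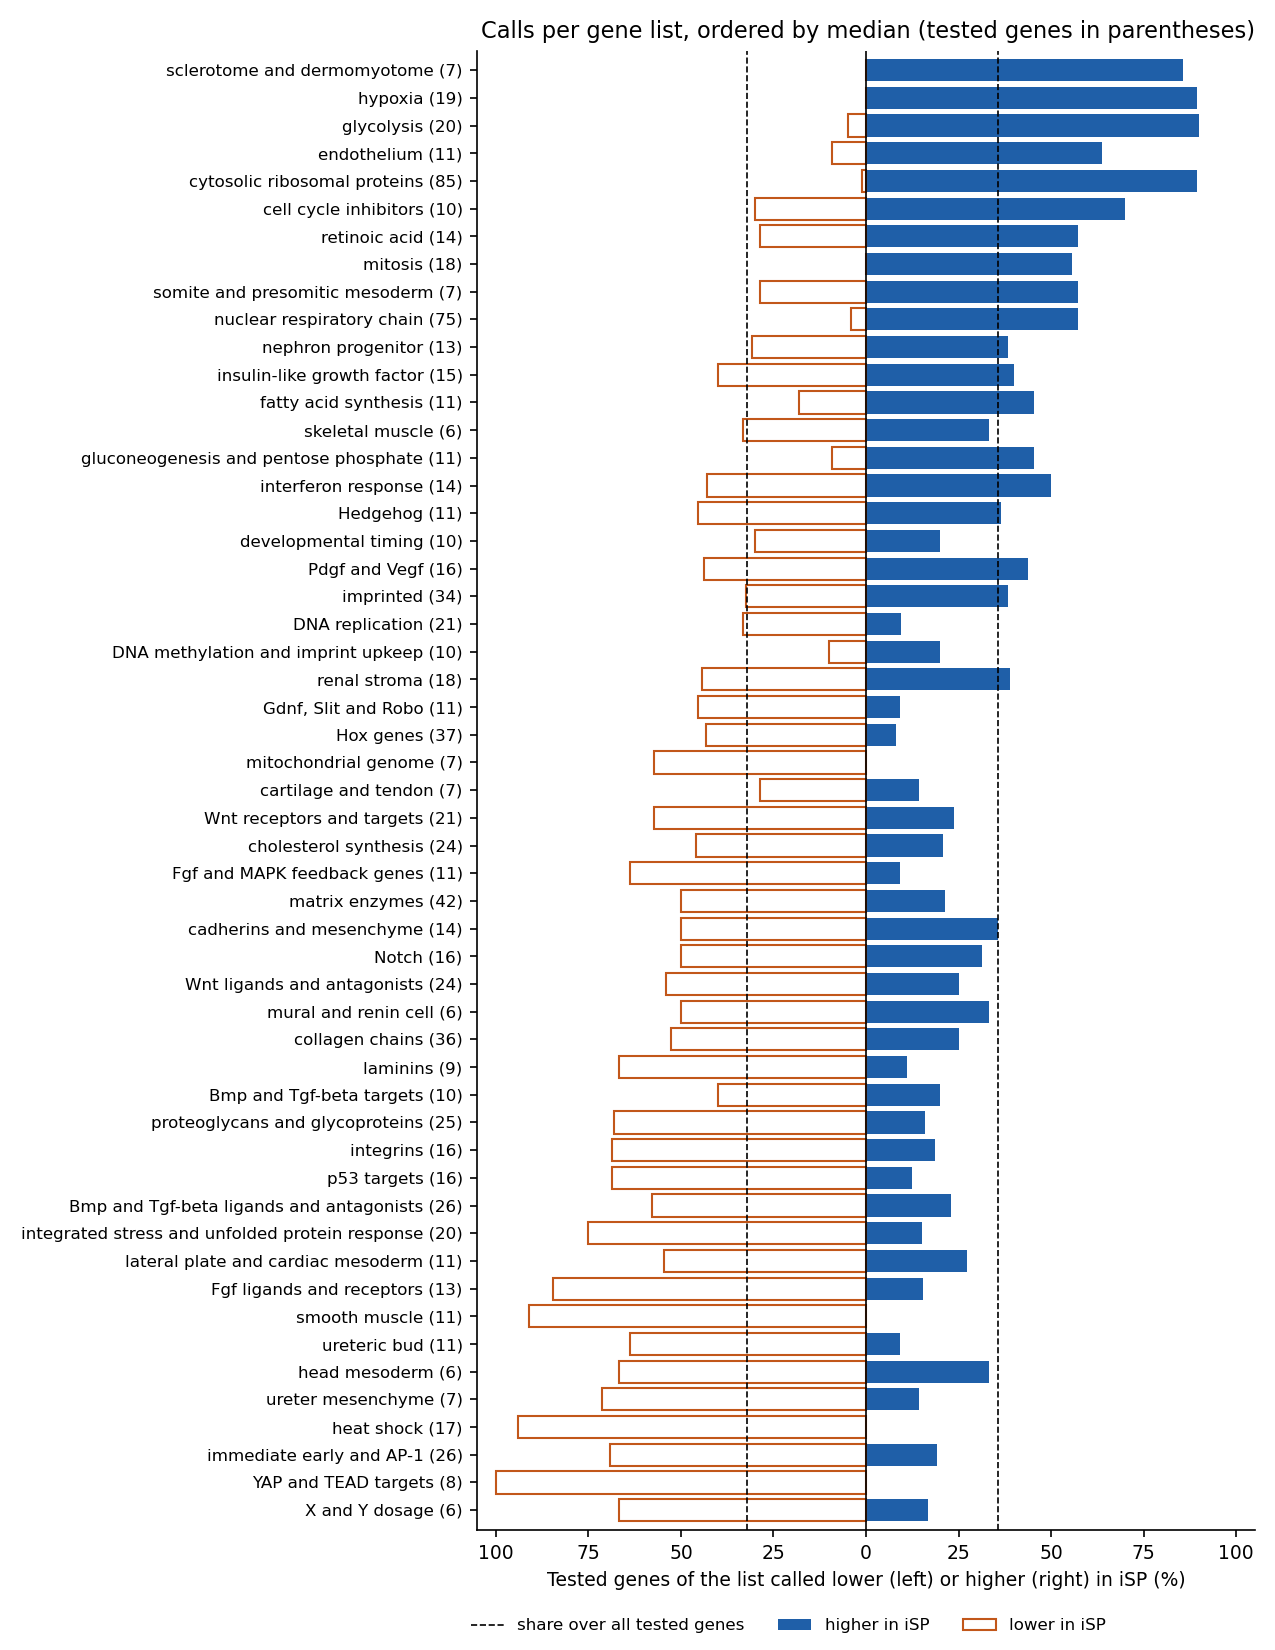
Share of tested genes called higher (right, filled) and lower (left, open) in iSPs for each of the gene lists with at least 6 tested members, in percent, with vertical lines at the shares of all 13916 genes (35.5% higher and 32.1% lower). Bars of hypoxia, glycolysis and ribosomal proteins extend to the right, and those of heat shock, YAP and TEAD targets and smooth muscle to the left.

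Heat shock genes were lower in iSPs. Of 17 heat shock genes 16 were lower and 0 higher, with a median of -1.57. *Hspa1a*, the inducible HSP70 chaperone, was at 0.773, 1.29, 0.665 and 0.912 normalised CPM in the iSP libraries and 103, 112, 149.6 and 121 in the E11.5 SP libraries (log2 fold change -5.9998 ± 0.14 SE, adjusted p = 6.9e-09). *Hspa1b*, a near-identical copy whose reads may have been divided with it, was at 2.95, 2.65, 2.84 and 2.40 in iSPs and 139, 148, 204 and 165 in E11.5 SPs, and *Hspb1*, a small chaperone, at 2.22, 1.075, 1.70 and 1.08 in iSPs and 45.5, 43.9, 69.96 and 65.9 in E11.5 SPs (log2 fold change -4.50 ± 0.20 SE, adjusted p = 2.0e-07). The groups did not overlap for these 3 genes. The constitutive *Hspa8* was lower by less (log2 fold change -1.24 ± 0.15 SE, adjusted p = 5.7e-05) and did not pass the test against E12.5 SPs (0.15). *Hsp90ab1* overlapped (log2 fold change 0.03 ± 0.11 SE, adjusted p = 0.83).

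The promoters of inducible chaperones are known for heat-shock elements, and they are shown because these genes moved together. The letters GAANNTTC, which read the same on both strands, were searched in the 250 bases before the annotated start in RefSeq promoters of GRCm38.p6. They were found for 6 of 12 heat shock genes that had a promoter in that table (50%) and for 2088 of 27025 genes in all (7.73%). The last 120 bases before the start of *Hspa1a* (chr17:34972157-34972276 of GRCm38.p6, minus strand) and *Hspb1* (chr5:135887799-135887918 of GRCm38.p6, plus strand) read, with the match in capitals:
Hspa1a: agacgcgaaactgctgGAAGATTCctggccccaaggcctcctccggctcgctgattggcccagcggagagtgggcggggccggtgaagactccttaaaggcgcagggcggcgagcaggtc
Hspb1: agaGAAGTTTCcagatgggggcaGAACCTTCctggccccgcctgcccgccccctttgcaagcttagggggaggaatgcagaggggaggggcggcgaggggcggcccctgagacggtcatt
*Hspb1* held 2 matches in this stretch and *Hspa1a* 1.

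Of 26 immediate early and AP-1 genes 18 were lower and 5 higher (median -1.79). The members did not move as one. *Nr4a3*, an orphan receptor, was at 0.435, 0.752, 0.591 and 0.372 in iSPs and 41.4, 43.8, 21.5 and 18.3 in E11.5 SPs (log2 fold change -4.30 ± 0.27 SE, adjusted p = 1.2e-06). *Jund* was at 458, 436, 402 and 368 in iSPs and 1037, 1114, 1160.5 and 1379.8 in E11.5 SPs (log2 fold change -1.49 ± 0.11 SE, adjusted p = 3.2e-06). Neither overlapped, and both were lower in iSPs. *Egr1* was higher at 428, 605, 609 and 515 in iSPs and 299, 433, 306 and 317 in E11.5 SPs (log2 fold change 0.67 ± 0.15 SE, adjusted p = 0.0031). *Fos* was higher too at 444, 508, 474 and 415 in iSPs and 181, 248, 175 and 187 in E11.5 SPs (log2 fold change 1.22 ± 0.12 SE, adjusted p = 1.7e-05). Its relative *Fosl1* was at 0.0483, 0.107, 0.148 and 0.0338 in iSPs and 14.7, 14.2, 13.2 and 18.4 in E11.5 SPs (log2 fold change -3.89 ± 0.12 SE, adjusted p = 2.8e-08). *Fos* and *Fosl1* were chosen after their values were seen.

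Of 20 genes of the integrated stress and unfolded protein responses 15 were lower and 3 higher, with *Atf4*, their central factor, at 135, 132, 131 and 134 in iSPs and 752, 630.4, 637 and 723 in E11.5 SPs (log2 fold change -2.36 ± 0.08 SE, adjusted p = 4.4e-08). *Chac1* was at 5.75, 3.30, 2.47 and 3.95 in iSPs and 87.3, 65.4, 80.3 and 104 in E11.5 SPs (log2 fold change -4.15 ± 0.21 SE, adjusted p = 3.4e-07), and *Sesn2* (-2.31) and the chaperones *Hspa5* (-1.53) and *Hsp90b1* (-0.71) were lower too. Of 16 p53 targets 11 were lower and 2 higher: the cell cycle inhibitor *Cdkn1a* was at 5.27, 3.19, 4.25 and 2.60 in iSPs and 64.7, 51.1, 51.6 and 41.0 in E11.5 SPs (log2 fold change -3.47 ± 0.19 SE, adjusted p = 5.8e-07). *Phlda3* (-1.72), *Fas* (-1.57), *Pmaip1* (-1.495) and *Mdm2* (-0.55) fell, and *Bax* overlapped (log2 fold change -0.11 ± 0.10 SE, adjusted p = 0.34). E11.5 SPs were dissociated from kidneys and iSPs from embryoid bodies before sorting, so that handling and origin of the cells cannot be told apart.

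Genes of the response to low oxygen were higher in iSPs. Of 19 tested 17 were higher and 0 lower, with a median of 1.83, where 35.5% of all genes were higher. *Car9*, a carbonic anhydrase, was at 34.6, 20.2, 18.8 and 24.3 in iSPs and 0.367, 0.267, 0.993 and 0.624 in E11.5 SPs (log2 fold change 4.01 ± 0.21 SE, adjusted p = 4.2e-07). *Slc2a3*, a glucose transporter, was at 366, 260.3, 251 and 273 normalised CPM in the iSP libraries and 24.3, 18.4, 18.4 and 20.5 in the E11.5 SP libraries (log2 fold change 3.74 ± 0.14 SE, adjusted p = 6.6e-08). *Egln3*, a prolyl hydroxylase of the oxygen sensor, was at 71.2, 70.9, 68.4 and 70.3 in iSPs and 3.44, 3.50, 4.97 and 7.65 in E11.5 SPs (log2 fold change 3.65 ± 0.20 SE, adjusted p = 4.8e-07). None of them overlapped, and none did in *Ddit4* (524 to 671 in iSPs against 92.1 to 154 in E11.5 SPs) or *Ndufa4l2* (24.4 to 30.5 in iSPs against 0.389 to 1.27 in E11.5 SPs). The same list, taken between iNPs and E11.5 NPs, gave 17 higher and 1 lower of 19, where 35.5% of genes were higher and 29.2% lower.

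The core letters of the hypoxia-response element, ACGTG on either strand, stood in the 250 bases before the start of 10 of 14 hypoxia genes with a promoter in the RefSeq table (71.4%), of 10 of 20 glycolysis genes (50%) and of 4998 of all genes (18.5%). The hypoxia promoters with a match whose genes moved most are shown, 120 bases each, with the match in capitals: *Car9* (chr4:43506906-43507025 of GRCm38.p6, plus strand), *Egln3* (chr12:54204004-54204123 of GRCm38.p6, minus strand, from base 249 to base 130 before the start) and *Bnip3* (chr7:138909507-138909626 of GRCm38.p6, minus strand), a mitophagy gene at 189, 154, 143 and 177 in iSPs and 12.01, 12.9, 16.7 and 19.6 in E11.5 SPs.
Car9: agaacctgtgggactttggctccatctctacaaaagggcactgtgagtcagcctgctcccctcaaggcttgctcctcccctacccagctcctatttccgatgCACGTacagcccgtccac
Egln3: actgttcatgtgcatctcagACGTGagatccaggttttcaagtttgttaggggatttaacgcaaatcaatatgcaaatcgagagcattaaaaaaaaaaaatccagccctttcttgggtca
Bnip3: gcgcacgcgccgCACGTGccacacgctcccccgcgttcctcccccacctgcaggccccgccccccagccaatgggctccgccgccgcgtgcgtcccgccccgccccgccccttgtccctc
In *Car9* the match lies on the other strand, and in *Bnip3* matches on both strands overlap in one palindrome.

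Glycolytic genes were higher in nearly every case. Of 20 genes 18 were higher and 1 lower, with a median of 1.51. *Pgk1*, a kinase of the pathway, was at 671, 507, 502 and 529.9 in iSPs and 119.96, 96.5, 138 and 165 in E11.5 SPs (log2 fold change 2.10 ± 0.16 SE, adjusted p = 4.1e-06). *Hk2*, the inducible hexokinase, was at 277, 253, 231 and 254 in iSPs and 51.5, 54.3, 59.4 and 57.2 in E11.5 SPs (log2 fold change 2.17 ± 0.08 SE, adjusted p = 7.9e-08). *Aldoa* was at 2999, 2332, 2289.8 and 2319 in iSPs and 664, 639.6, 759 and 847 in E11.5 SPs (log2 fold change 1.77 ± 0.13 SE, adjusted p = 2.8e-06), *Pkm* was higher by less (log2 fold change 1.16 ± 0.12 SE, adjusted p = 2.0e-05). These 3 genes did not overlap. The lactate exporter *Slc16a3* was at 426, 355, 334 and 352 in iSPs and 64.7, 50.04, 73.9 and 96.7 in E11.5 SPs (log2 fold change 2.38 ± 0.18 SE, adjusted p = 3.2e-06). Among genes of gluconeogenesis and the pentose phosphate pathway 5 of 11 were higher and 1 lower, and with E11.5 SP libraries 3 and 4 alone 4 and 4. *Gnpda1*, a glucosamine phosphate deaminase, was at 41.0, 36.2, 38.7 and 36.6 in iSPs and 3.20, 3.01, 3.89 and 3.33 in E11.5 SPs (log2 fold change 3.17 ± 0.10 SE, adjusted p = 3.0e-08). *Gfpt2*, which makes glucosamine phosphate, was at 33.6, 33.99, 35.5 and 36.9 in iSPs and 77.3, 81.9, 93.2 and 92.8 in E11.5 SPs (log2 fold change -1.27 ± 0.09 SE, adjusted p = 1.8e-06).

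Ribosomal protein genes were higher, most of them by small amounts. Of 85 genes 76 were higher and 1 lower, with a median of 0.79, or 0.93 under upper-quartile scaling and 0.58 with the trend on transcript length and GC content removed. *Rpl35a* was at 379, 303, 297 and 363 in iSPs and 89.4, 79.7, 94.5 and 118 in E11.5 SPs (log2 fold change 1.81 ± 0.13 SE, adjusted p = 2.8e-06), and *Rpl4* was higher by 0.46 and *Rpl8* by 0.69. The largest values belonged to copies such as *Rps3a3* (397 to 502 in iSPs against 3.53 to 49.6 in E11.5 SPs), and the division of reads between such copies and their parent genes is uncertain. Nuclear genes of the respiratory chain went the same way, 43 of 75 higher and 3 lower (median 0.38), under upper-quartile scaling 51 and 2. With the trend on transcript length and GC content removed 37 were higher and 10 lower (median 0.20). Against E11.5 SP libraries 1 and 2 alone 65 were higher, and against 3 and 4 alone 27. *Ndufs5*, a subunit of the first complex, was an exception at 1.64, 1.72, 1.15 and 0.845 in iSPs and 11.2, 9.39, 13.0 and 13.4 in E11.5 SPs (log2 fold change -2.45 ± 0.16 SE, adjusted p = 1.6e-06), *Ndufa6* was higher (89.4 to 109.8 in iSPs against 38.2 to 55.9 in E11.5 SPs). *Atp5b* overlapped (log2 fold change -0.11 ± 0.12 SE, adjusted p = 0.46). The list of protein-coding mitochondrial genes, a part of the mitochondrial genes counted above, went the other way: of 7 tested 4 were lower and 0 higher. *mt-Nd4* was at 797, 622, 668 and 752 in iSPs and 884, 1022, 1059.8 and 1071 in E11.5 SPs (log2 fold change -0.51 ± 0.11 SE, adjusted p = 0.0021) and *mt-Cytb* at -0.49, while *mt-Co1* overlapped (log2 fold change 0.09 ± 0.15 SE, adjusted p = 0.61). Under upper-quartile scaling 2 of the 7 were lower, and the median went from -0.36 to -0.22.

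**Figure D4:**
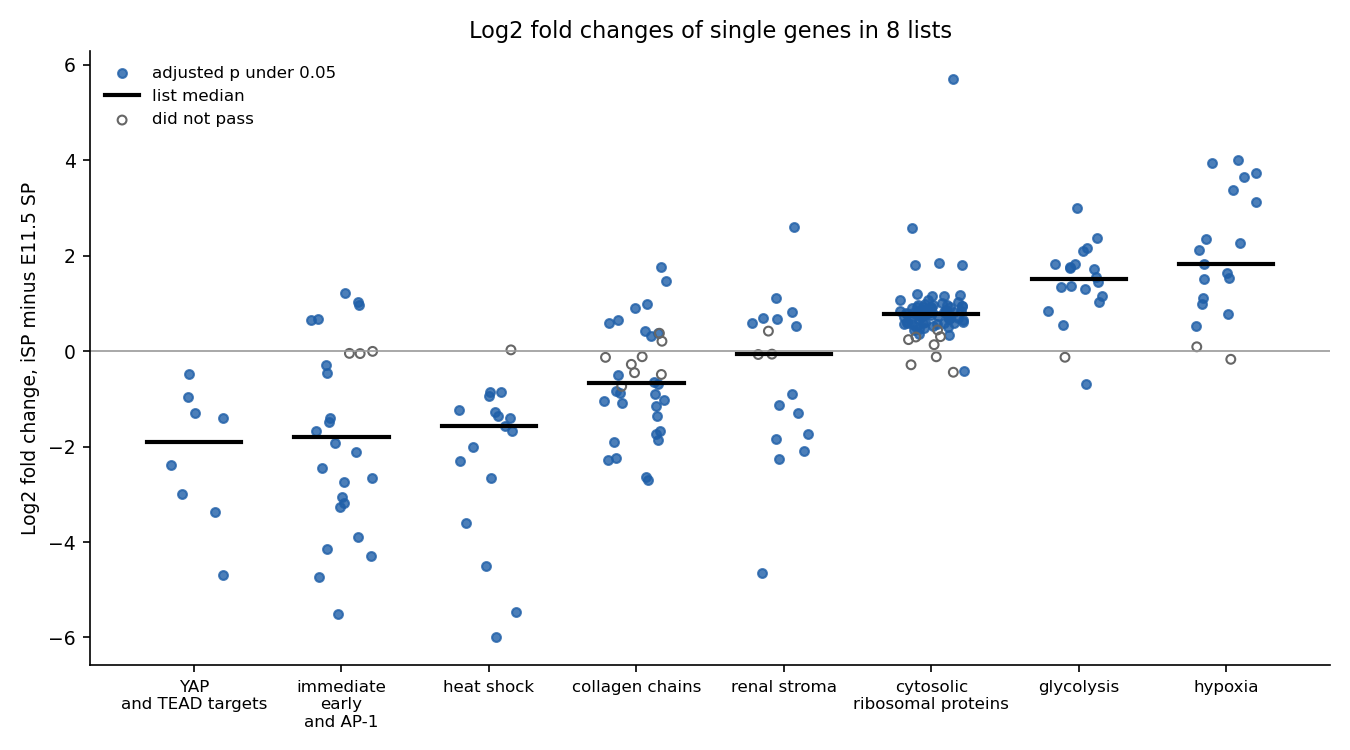
Log2 fold change (iSP minus E11.5 SP, log2 of normalised CPM + 1) of each tested member of 8 lists, each point a gene, filled where the adjusted p-value was under 0.05, with a bar at the list median. Medians run from -1.90 for YAP and TEAD targets and -1.79 for immediate early genes to 1.51 for glycolysis and 1.83 for hypoxia.

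Genes of cholesterol synthesis depended on the comparator. Of 24 genes 5 were higher and 11 lower against E11.5 SPs, but 9 were higher and 0 lower against E12.5 SPs. *Cyp51*, an enzyme of the pathway, was at 176, 139, 150.3 and 177 in iSPs and 483, 492, 885 and 865 in E11.5 SPs (log2 fold change -2.03 ± 0.21 SE, adjusted p = 2.8e-05). *Insig1*, a sensor of sterols, was at 126, 108, 114 and 116 in iSPs and 231, 274, 479 and 392 in E11.5 SPs (log2 fold change -1.51 ± 0.20 SE, adjusted p = 1.3e-04), and both were highest in E11.5 SP libraries 3 and 4. *Idi1* (-1.33) was lower as well. Of 11 fatty acid genes 5 were higher and 2 lower, *Scd1* at 266, 211, 221 and 261 in iSPs and 64.8, 67.1, 121 and 102 in E11.5 SPs (log2 fold change 1.47 ± 0.20 SE, adjusted p = 1.3e-04) and *Acss2* (1.38) among the former and *Elovl5* (-1.37) among the latter.

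Genes of mitosis were higher or did not pass the test, and inhibitors of the cycle differed more. Of 18 mitosis genes 10 were higher and 0 lower, *Plk1* at 166, 148, 152 and 154 in iSPs and 69.0, 67.6, 71.4 and 77.7 in E11.5 SPs (log2 fold change 1.11 ± 0.07 SE, adjusted p = 1.8e-06). *Top2a* was at 580, 583, 571 and 629 in iSPs and 315, 294, 339 and 373 in E11.5 SPs (log2 fold change 0.84 ± 0.09 SE, adjusted p = 2.9e-05). Of 21 replication genes 2 were higher and 7 lower. Under upper-quartile scaling 4 were higher and 5 lower, with E11.5 SP libraries 1 and 2 alone 5 were higher and 8 lower, and with libraries 3 and 4 alone 1 were higher and 10 lower. *Cdc6* was at 34.9, 32.6, 34.7 and 39.3 in iSPs and 71.6, 75.2, 86.2 and 77.2 in E11.5 SPs (log2 fold change -1.11 ± 0.09 SE, adjusted p = 4.9e-06). *Mcm3* overlapped (log2 fold change -0.17 ± 0.08 SE, adjusted p = 0.087). *Mki67*, a long transcript chosen after its values were seen, varied more within groups than between them (41.0, 203, 129 and 106 in iSPs and 270.4, 359, 85.0 and 16.4 in E11.5 SPs). The inhibitors differed one by one: *Cdkn2a* was at 3.33, 3.47, 3.66 and 2.60 in iSPs and 0.167, 0.0243, 0.0795 and 0.0260 in E11.5 SPs (log2 fold change 1.99 ± 0.12 SE, adjusted p = 8.0e-07), *Cdkn2c* was higher (1.59), and *Cdkn1c* rose by 0.90. *Rb1* was at 5.85, 7.16, 6.72 and 6.05 in iSPs and 31.0, 25.5, 21.7 and 18.5 in E11.5 SPs (log2 fold change -1.74 ± 0.15 SE, adjusted p = 8.9e-06), and *Cdkn1a* was lower (-3.47). Of 10 inhibitors 7 were higher and 3 lower, and against E12.5 SPs 4 and 2.

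Imprinted genes, expressed from one parental copy, had their largest log2 fold changes on the lower side, with a range of -8.10 to 1.76. Of 34 genes 13 were higher and 11 lower in iSPs. *H19*, expressed from the maternal copy, was at 12.9, 15.8, 29.8 and 22.3 normalised CPM in the iSP libraries and 3355, 3182, 3577 and 4007 in the E11.5 SP libraries, 175-fold lower in iSPs (log2 fold change -7.44 ± 0.22 SE, adjusted p = 1.9e-08). Its paternally expressed neighbour *Igf2* was higher, as given above. *Nnat* was at 5.03, 3.47, 3.66 and 2.64 in iSPs and 477, 491, 611 and 674 in E11.5 SPs (log2 fold change -6.92 ± 0.17 SE, adjusted p = 6.9e-09), *Grb10* was lower as given above, and *Gnas* overlapped (log2 fold change -0.13 ± 0.09 SE, adjusted p = 0.24). In the nephron lineage *H19* was at 25.1 ± 5.98 (SD, n = 4) in iNPs and 2941 ± 219.8 (SD, n = 4) in E11.5 NPs, and *Nnat* at 1.96 ± 0.324 (SD, n = 4) and 236 ± 14.3 (SD, n = 4), so both genes were lower in the induced cells of either lineage. Of 10 genes of DNA methylation and imprint upkeep 2 were higher and 1 lower, with *Tet1* at 53.4, 67.0, 64.9 and 68.0 in iSPs and 32.9, 38.5, 34.1 and 20.8 in E11.5 SPs (log2 fold change 1.01 ± 0.18 SE, adjusted p = 6.6e-04). *Trim28* overlapped (log2 fold change -0.10 ± 0.08 SE, adjusted p = 0.28).

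Some genes that can differ between lines or sexes were nearly absent from iSPs. *Hprt* was at 0.290, 0.537, 0.702 and 0.574 in iSPs and 35.4, 23.1, 30.9 and 43.9 in E11.5 SPs (log2 fold change -4.46 ± 0.19 SE, adjusted p = 1.3e-07). *Xist*, made from the inactive X chromosome of female cells, was at 0.0483, 0.430, 0.111 and 0.203 in iSPs and 219.7, 183, 84.1 and 105.4 in E11.5 SPs (log2 fold change -6.86 ± 0.28 SE, adjusted p = 1.2e-07). Neither overlapped. Of the Y-linked genes *Ddx3y* was at 35.0, 39.2, 38.0 and 38.6 in iSPs and 44.7, 71.2, 69.5 and 52.0 in E11.5 SPs. *Uty* was at 14.3, 19.8, 17.03 and 19.6 in iSPs and 7.94, 10.9, 10.2 and 5.57 in E11.5 SPs. *Kdm5d*, by contrast, was at 0.145, 0.107, 0 and 0.304 in iSPs and 15.9, 25.5, 26.5 and 14.3 in E11.5 SPs (log2 fold change -4.20 ± 0.21 SE, adjusted p = 3.1e-07). Each iSP library thus held *Ddx3y* and *Uty* with next to no *Kdm5d* or *Hprt*. *H2-K1*, a class I histocompatibility gene, was at 9.57, 6.55, 6.54 and 5.81 in iSPs and 69.4, 67.9, 38.7 and 40.6 in E11.5 SPs (log2 fold change -2.73 ± 0.22 SE, adjusted p = 5.5e-06). *H2-D1*, another, was at 6.43, 5.34, 5.39 and 4.76 in iSPs and 57.1, 58.2, 36.5 and 41.5 in E11.5 SPs (log2 fold change -2.91 ± 0.16 SE, adjusted p = 6.1e-07), so both were lower in iSPs. *Tap1*, which loads peptides for them, was higher (6.77 to 7.94 in iSPs against 0.728 to 1.57 in E11.5 SPs), as was *Ifit2* (12.8 to 17.5 in iSPs against 1.77 to 3.88 in E11.5 SPs), an interferon-induced gene. Over the interferon list 7 of 14 were higher and 6 lower. These genes are polymorphic between strains, and the reads of both strains were counted on a single reference.

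Of 10 genes of developmental timing 2 were higher and 3 lower, and these counts depended on the comparator. Against E12.5 SPs 6 were higher and 1 lower, and with E11.5 SP libraries 1 and 2 alone 2 were higher and 6 lower. *Lin28a*, an RNA-binding protein of early embryos, was at 20.8, 21.6, 21.8 and 18.1 in iSPs and 16.3, 4.21, 2.19 and 0.910 in E11.5 SPs (log2 fold change 2.15 ± 0.55 SE, adjusted p = 0.0063), and rose by 1.181 against E11.5 SP libraries 1 and 2 and by 3.12 against 3 and 4. *Igf2bp1* was lower (-1.15) and *Hmga2* ran from 1524 to 1682 in iSPs and from 1374 to 1657 in E11.5 SPs. The germline genes *Tdrkh* (12.2 to 14.3 in iSPs against 2.04 to 2.37 in E11.5 SPs) and *Sycp3* (3.14 to 4.12 in iSPs against 0.0260 to 0.318 in E11.5 SPs) were higher. The myogenic factor *Myog* was at 4.93, 1.83, 3.58 and 3.82 in iSPs and 0, 0, 0 and 0 in E11.5 SPs, at least 29.7-fold higher in iSPs when set against 3 reads in the shallowest E11.5 SP library, and *Actc1* was lower (-1.03). Of 6 skeletal muscle genes 2 were higher and 2 lower.

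Among the protein-coding genes with the largest log2 fold changes, those higher in iSPs that the lists above do not hold were *Mab21l2* (23.8 to 39.5 in iSPs against 0 to 0.200 in E11.5 SPs), the Iroquois factor *Irx3* (179 to 211 in iSPs against 0.962 to 29.1 in E11.5 SPs, with log2 fold changes of 3.33 and 6.10 against E11.5 SP libraries 1 and 2 and libraries 3 and 4) and the class II gene *H2-Ab1* (22.7 to 32.6 in iSPs against 0.0243 to 0.397 in E11.5 SPs). So were 2 annotated copies of ribosomal protein genes, *Gm10036* (71.4 to 105.3 in iSPs against 1.20 to 2.82 in E11.5 SPs) and *Gm8730* (309 to 400.3 in iSPs against 6.79 to 26.9 in E11.5 SPs). Those lower in iSPs were *Tnfrsf12a*, the receptor of the cytokine TWEAK (0.537 to 1.11 in iSPs against 84.5 to 129 in E11.5 SPs), and *Gm10260* (0.406 to 1.26 in iSPs against 125 to 203 in E11.5 SPs), another ribosomal protein copy. The handling of reads that match both copy and parent is not given in the sources used here, so the levels of these 3 copies are uncertain.

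The stromal comparison was then set against the nephron comparison, iNPs against E11.5 NPs, to show where it differs. In the latter 64.7% of 14064 genes differed, 35.5% higher and 29.2% lower. The comparisons share no library, but iNPs and iSPs were sorted from one kind of culture. The difference between the log2 fold changes was tested with all 16 libraries, and 4344 of 14846 genes (29.3%) differed between the comparisons: 1761 (11.9%) stood higher and 2583 (17.4%) lower in the stromal than in the nephron comparison. Hypoxia, glycolysis, heat shock and ribosomal protein lists moved in the same direction in both, with medians of 1.62, 1.24, -0.91 and 0.66 in the nephron comparison. Single genes also differed in size: by the test of the difference 11 of 17 heat shock genes stood lower and 0 higher in the stromal comparison, *Hspa1a* by -2.13 ± 0.32 SE, adjusted p = 8.8e-05. For hypoxia 5 stood higher and 4 lower, for glycolysis 3 and 2, and for ribosomal proteins 1 and 0.

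The median of the collagen list differed in sign, at 0.85 in the nephron comparison. Of 36 collagen chains 28 were higher and 2 lower in iNPs than in E11.5 NPs, and by the test of the difference 27 of 36 chains stood lower and 0 higher in the stromal than in the nephron comparison. Some stromal genes moved with the collagens in the nephron comparison: *Pdgfra*, a sort gene, was at 31.6 ± 11.2 (SD, n = 4) in iNPs and 2.53 ± 0.470 (SD, n = 4) in E11.5 NPs, and *Ddr2* at 14.1 ± 6.16 (SD, n = 4) and 1.01 ± 0.409 (SD, n = 4). Of 18 renal stroma genes 9 were higher and 5 lower there, and *Foxd1*, as given above, had a lower mean in iNPs. *Col3a1* was at 298 ± 71.5 (SD, n = 4) in iNPs and 23.1 ± 1.93 (SD, n = 4) in E11.5 NPs. The part of stromal cells in this difference was not tested. All 11 ureteric bud genes that were tested also stood lower in the stromal comparison. Among nephron progenitor genes 8 of 13 stood higher and 2 lower, and among renal stroma genes 3 stood higher and 7 lower.

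The genes with the largest differences between the comparisons included several of the stroma. *Ecm1* was at 124 ± 11.49 (SD, n = 4) in iNPs and 2.30 ± 0.293 (SD, n = 4) in E11.5 NPs, and so rose in the nephron comparison while it fell in the stromal one (difference -6.37 ± 0.26 SE, adjusted p = 1.1e-10). *Rgs5*, at 109 ± 16.4 (SD, n = 4) in iNPs and 3.65 ± 0.741 (SD, n = 4) in E11.5 NPs, did the same (difference -6.10 ± 0.22 SE, adjusted p = 3.5e-11). So did *Postn*, at 30.5 ± 7.34 (SD, n = 4) and 7.80 ± 1.48 (SD, n = 4) (difference -5.17 ± 0.27 SE, adjusted p = 1.4e-09). *Adamts18* (-4.95), the neurotrophin receptor *Ntrk2* (-5.37) and *Rprm* (-5.29) were the others that stood lower. *Lmx1b*, a LIM-homeodomain factor, was at 9.23, 11.999, 12.3 and 10.002 in iSPs and 6.64, 1.82, 1.073 and 1.46 in E11.5 SPs, and at 6.84 ± 1.81 (SD, n = 4) in iNPs and 93.7 ± 10.8 (SD, n = 4) in E11.5 NPs (difference 5.49 ± 0.42 SE, adjusted p = 7.8e-08). *C130021I20Rik*, annotated antisense beside it, was at 8.90 to 12.4 in iSPs against 0.397 to 1.67 in E11.5 SPs (difference 4.73). *Rspo1*, a Wnt agonist of nephron progenitors, was higher in iSPs (11.6 to 18.3 in iSPs against 3.09 to 6.24 in E11.5 SPs) and lower in iNPs, at 17.6 ± 2.69 (SD, n = 4) against 119 ± 8.49 (SD, n = 4) in E11.5 NPs (difference 4.36). *Mab21l2* (3.93), *Capn6* (3.79) and *Ppargc1b* (3.33) also stood higher. The plot of list medians sets both comparisons side by side.

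**Figure D5:**
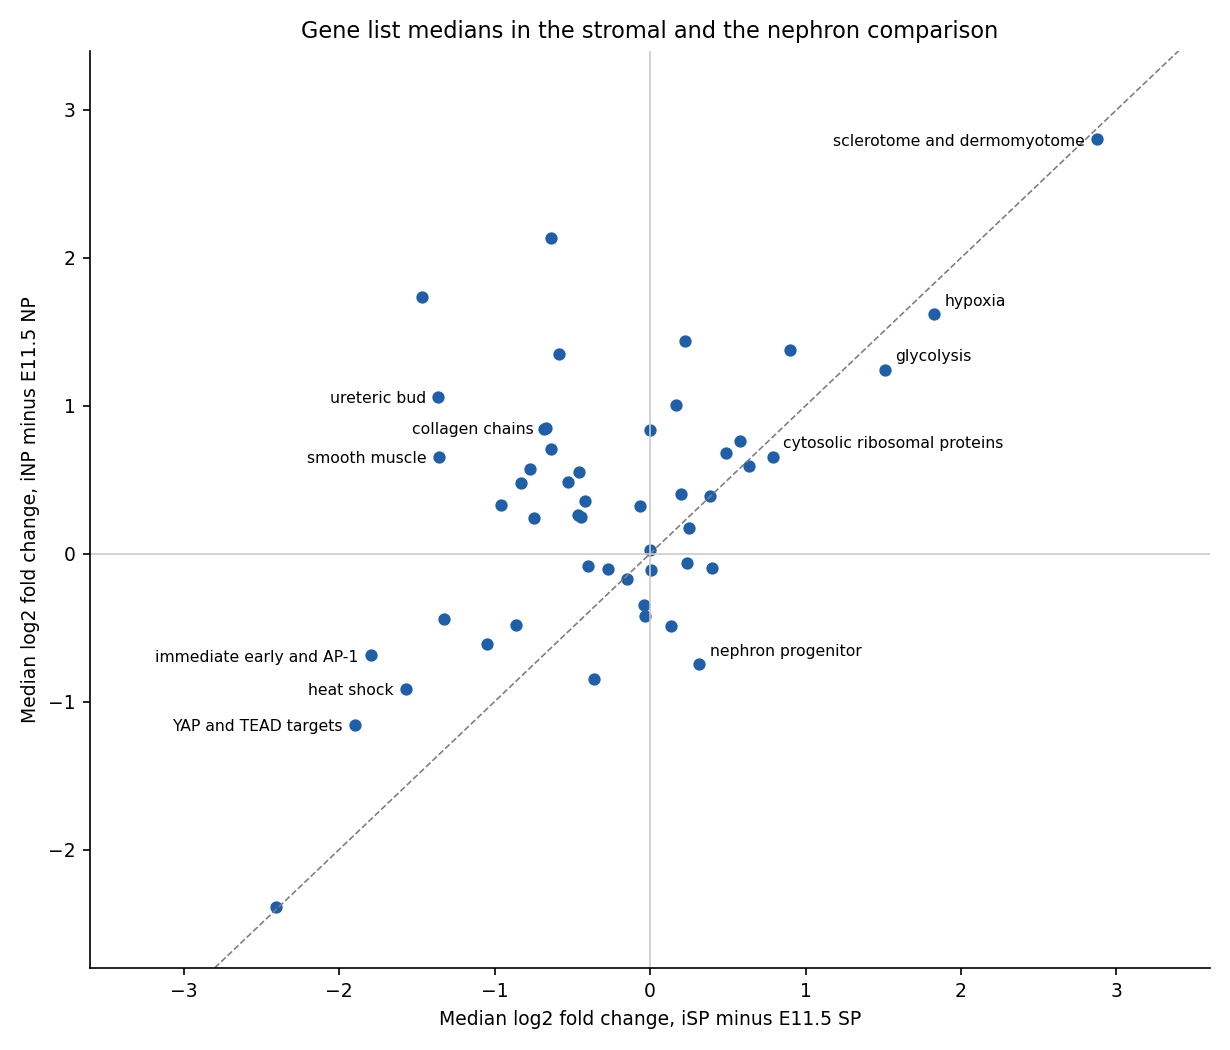
Median log2 fold change of each gene list with at least 6 members tested in each of both comparisons, the stromal (iSP minus E11.5 SP, horizontal axis) and the nephron comparison (iNP minus E11.5 NP, vertical axis), each point a list, with a diagonal of equality. Hypoxia and glycolysis lie at the upper right in both, while collagen chains (-0.67 in the stromal comparison) and the ureteric bud list lie at the left and above the diagonal.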

How the data were processed

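Poly(A) RNA of sorted cells was sequenced on stranded libraries with paired reads. According to the study's methods and the submitters' processing notes, reads were trimmed with Cutadapt and aligned with STAR to a genome written as GRCh38, although the gene identifiers are those of mouse. The counting program is not given in the sources used here. The deposited signal values are CPM that the authors scaled with normalisation factors, with one column for each library, and a second deposited table, with the authors' own comparisons, was not used. Divided by what 1 read is worth in its column, each value of the 36 columns came out whole within 0.01 read (100% of values), which gave the reads on genes and the value of 3 reads in each library. Poly(A) selection, depth and the handling of reads shared by gene copies bear on the measured levels, and intervals were not computed for single libraries because the spread of replicates was used.

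Values were tested in R 4.3.3 with limma 3.58.1 (trend), two-sided, on log2(normalised CPM + 1), adjusted p-values (Benjamini-Hochberg) being held against 0.05. The main fit held the 8 libraries of iSPs and E11.5 SPs and the genes at 1 or more in at least 4 of them. The difference from the nephron comparison used 16 libraries in the same way. Each replicate pools embryos of a female or embryoid bodies of a batch, so p-values measure the spread between such pools. Gene lists were not tested: their called members were counted and their median given beside those of all genes. The members and the lists were chosen with earlier results of these data known. Named were all tested sort markers, renal stroma and nephron progenitor genes, in other lists the 4 called genes with the largest fold change and the 2 with the highest mean, over all genes the 10 coding genes with the largest fold change in each direction, the 6 in each direction with the largest difference between comparisons, and in gene types that stand apart the 4 called genes with the highest mean. Some genes that this rule takes in are not reported here by name, but stay in the counts, medians and sums. Some listed genes outside that rule were also named, from their role or after their values were seen. Gene positions and types came from GENCODE release 21 for mouse (GRCm38) and matched 22642 of 22761 genes. In simulated counts for 12468 genes, the test called 100% of 100 genes changed by 1 and 100% of 100 changed by 2 on the log2 scale, and 0.0815% of unchanged genes. The simulation gave all genes the same fixed spread and no differences between pools such as those among the E11.5 SP libraries. These rates therefore do not measure the test on the real pools. Alternatives covered scaling, filter, pseudocount, test, samples in the fit, length and GC content, the replicate number as a block, the comparator and single libraries left out. They included edgeR 4.0.16 and DESeq2 1.42.0 on the recovered reads. Fits against E11.5 SP libraries 1 and 2 alone, or 3 and 4 alone, were added after the data were seen. Tables and plots were made with Python 3.11.15, pandas 2.3.3, numpy 2.4.6 and matplotlib 3.10.9.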

Additional observations from a re-analysis of the deposited data

Results flagged for a closer look

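In groups of 4 libraries, a library was marked where its gap to the nearest other library, divided by the range of the group, exceeded Dixon's critical value for 4 values. This happened for 35 of 708 groups of a named gene or a list sum, and chance marks about 1 group in 20, so there were no more marks than chance gives. The marks fell on E11.5 SP library 4 (9 times), library 1 (6), library 3 (3) and library 2 (2), and on iSP library 1 (10), library 4 (4) and library 2 (1). The values below are normalised CPM.

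E11.5 SP library 4 was marked in erythroid genes: *Hbb-y* was at 989.6 where the median of the other libraries was 152, *Hba-a1* at 99.6 against 11.005, and the erythroid sum at 1582 against 267. In the same library *Itga8* was at 28.1 against 14.5, *Snai2* at 88.3 against 46.7 and *Id3* at 397 against 269, all higher than in the others. *Col8a1* was lower there at 5.10 against 7.01, *Col4a1* at 200.4 against 334, and the sum of the laminin chains was 823 against 1027.

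E11.5 SP library 1 was high in *Pax1* (3.003 against 0.468), *Lmx1b* (6.64 against 1.46), *Rspo1* (6.24 against 3.14) and the ribosomal protein copy *Rps3a3* (49.6 against 3.85). It was low in *Meis2* (366 against 469) and in the sum of the renal stroma list (4862 against 5873). Library 2 held the highest *Egr1* (433 against 306) and *Fos* (248 against 181). Library 3 held the highest *Rgs5* (224 against 153) and *Sycp3* (0.318 against 0.0334). *Dppa5a* was marked there for 1 read (0.0397), below the limit of 3 reads.

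Among iSPs, library 1 was highest in the glycolytic genes *Aldoa* (2999 against 2319) and *Pgk1* (671 against 507), and in *Igfbp2* (524 against 359), *Gnas* (2321 against 2169), *Fzd10* (51.1 against 42.9), *H2-Ab1* (32.6 against 23.2) and *Ndufa6* (109.8 against 91.1). It was lowest in *Lats2* (19.2 against 21.998), *Tshz3* (33.5 against 40.0) and the head mesoderm sum (146 against 155). Library 4 was lowest in *Mcam* (7.47 against 10.3), *Jag1* (17.98 against 24.98) and *Etv5* (22.7 against 26.9) and highest in *Grem1* (1.52 against 1.04), and *Ret* was highest in library 2 (1.075 against 0.304).

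The stromal and the nephron comparison differed for 4344 genes by limma's test of the difference. The genes with the largest differences that stood higher in the stromal comparison were *Lmx1b* (5.49), *C130021I20Rik* (4.73), *Rspo1* (4.36), *Mab21l2* (3.93), *Capn6* (3.79) and *Ppargc1b* (3.33), given as differences of log2 fold changes. Those that stood lower were *Ecm1* (-6.37), *Rgs5* (-6.10), *Ntrk2* (-5.37), *Rprm* (-5.29), *Postn* (-5.17) and *Adamts18* (-4.95).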

How the results depend on the processing

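The number of genes called between iSPs and E11.5 SPs stayed within 1.5 times of 9411 under all alternatives but 1. Testing each gene for a change of over 1 on the log2 scale called 1449 genes, 633 higher and 816 lower, and of the stromal set from E12.5 it called 63 higher and 284 lower. With the threshold of that set raised to 2 on the log2 scale, 108 of 518 were higher and 300 lower, against 331 and 727 of 1403. Upper-quartile scaling called 5770 higher and 3712 lower. edgeR called 9402 genes and DESeq2 9699. Leaving out single libraries gave 8692 to 10163 genes called, 4580 to 5324 higher and 4104 to 4839 lower, 299 to 366 higher and 682 to 778 lower in the stromal set, and 3782 to 5131 for the difference between the comparisons. A replicate block in the model gave 9397 calls, and 4223 for the difference. Replicate numbers were not used as pairs in the main fits. Deviations of same-numbered iSP and E11.5 SP libraries, which share no source, correlated at -0.21, 0.54, 0.07 and 0.13. Those of same-numbered iSP and iNP libraries correlated at -0.24, -0.29, 0.29 and 0.21. For E11.5 SP and E11.5 NP libraries the values were 0.49, -0.33, 0.35 and 0.26. Whether libraries with the same number share a pool is not given in the labels.

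Of 303 gene results, 165 were kept under every alternative that gave a value. A called gene was kept if it stayed called in the same direction. A gene that was not called was kept if it stayed so, whatever its direction. Of 6908 values in all, 6610 were kept in this sense, 192 lost the call (96 of them in the test against a fold), 75 gained a call and 31 turned. With E12.5 SPs as comparator 27 turned, of which *Col2a1* (3.22), *Hoxd13* (1.99), *Six2* (1.95), *Tbx4* (1.80), *Gata4* (1.01), *Sfrp2* (0.79), *Gata3* (0.71), *Epcam* (0.49), *Rgs5* (0.38), *Hoxd1* (0.36) and *Trim28* (0.27) were higher and *Hic1* (-1.37), *Col4a6* (-0.84), *Lama4* (-0.51) and *Snai2* (-0.36) lower in iSPs. The others did not pass the test there: *Krt8* (0.67), *Idi1* (0.40), *Insig1* (0.28), *Isl1* (0.21), *Hspa8* (0.15), *Actc1* (0.093), *Nfia* (-0.042), *Rarb* (-0.064), *Pdgfra* (-0.15), *Nr2f2* (-0.20), *Wt1* (-0.24) and *Egr1* (-0.45). *Hsp90ab1* became lower under quantile normalisation (-0.52), *Slit3* became lower without E11.5 SP replicate 4 (from -0.25 to 0.17 with single E11.5 SP libraries left out) and with libraries 1 and 2 only (-0.30), and *Tbx4* became higher with libraries 3 and 4 only (1.74). The cause of these turns was not tested.

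Some calls close to the threshold were lost without 1 library: those of *Wnt4*, *Six2*, *Epcam*, *Wt1*, *Col3a1*, *Notch3*, *Pdgfra* and *6330403K07Rik*. Without E11.5 SP library 4 *Gata3* (-1.05), *Col2a1* (-0.77), *Tgfb2* (-0.40), *Col4a1* (-0.30) and *Col4a2* (-0.25) became lower and *Pecam1* (1.34) and *Snai2* (0.64) higher in iSPs. Without library 1 *Mmp2* (-0.49) and *Col4a5* (-0.40) became lower and *Hoxc11* higher (0.50), and without iSP library 1 *Col4a6* became higher (0.33). Each group held 4 pools, the E11.5 SPs varied more than the iSPs, and strain and derivation were not separated by the design, which limits what single differences show. Genes under 3 reads in a library could not be told from absent ones.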
